A study of Mus musculus with 30 samples.

Results

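Gene expression in control mouse lungs at E18.5 (E for embryonic day), shortly before birth, was compared with that at E13.5, when the airway tree is still branching. The libraries were chosen by their labels, as every lung labelled control: 4 at E18.5 and 5 at E13.5, or 9 of the 30 libraries of the series. The series deleted Myocd, which codes for myocardin, a coactivator that switches on contractile genes of smooth muscle, and these lungs served as its controls. Each library held messenger RNA of 1 lung, from the right lobes at E18.5 and from the right and left lobes at E13.5. All 4 lungs at E18.5 were Tbx4rtTAi/+; tetOcrei/+; MyocdF/+, and so were controls 2 to 5 at E13.5. They carried a reverse tetracycline transactivator named for Tbx4, a gene of the lung mesenchyme, and a tetracycline-dependent Cre. They also had 1 floxed copy of Myocd, so they are no wild type. Control 1 at E13.5 was MyocdF/F, with neither transgene. The stages were sequenced in separate runs and differ in the lobes taken, so stage, run and lobes cannot be told apart in any value below. The labels do not give litters, so p-values measure the spread between these lungs alone.

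The mouse lung branches from the foregut endoderm into the surrounding mesenchyme during the pseudoglandular stage, under signals such as FGF10, sonic hedgehog, WNT and BMP proteins that pass between the tissues. In the canalicular and saccular stages the distal tips widen into sacs, their epithelium differentiates into flat type 1 cells for gas exchange and cuboidal type 2 cells that make surfactant, and capillaries and elastic fibres grow into the thinning walls. Glucocorticoids released near birth are known to promote this maturation.

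The libraries held 24.8 to 32.8 M counts at E18.5 and 23.5 to 28.5 M at E13.5, a difference that did not pass an exact two-sided permutation test (p = 0.206). Genes with at least 1 read numbered 23622 ± 638 at E18.5 and 25194 ± 264 at E13.5 (SD, n = 4 and 5). Composition differed between the stages without overlap in several measures. Mitochondrial genes took 0.912 ± 0.098% of counts at E18.5 and 2.39 ± 0.186% at E13.5, and genes of ribosomal proteins took 2.53 ± 0.186% at E18.5 and 4.31 ± 0.211% at E13.5. Both differences had p = 0.0159 in the exact permutation test, the smallest that 4 against 5 libraries can give (adjusted p = 0.0265 over 10 measures). Control 2 at E13.5 stood apart from the other E13.5 lungs, with 0.479% of its counts in globin genes against 0.193 to 0.224% in the others. By the level of Xist, E18.5 lungs 2 and 4 and E13.5 lung 4 were female.

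Levels are given in counts per M (CPM), scaled by TMM, for each library in the order of its replicate number, and levels of different genes are set side by side only as reads per kilobase per M (RPKM). Of 17580 genes tested with edgeR, 14056 (80%) changed between the stages at an adjusted p under 0.05: 7100 (40.4%) rose at E18.5 and 6956 (39.6%) fell. So many genes passed that the counts below use a stricter test as well, which asks whether the change exceeds 2-fold. That test was passed by 6120 genes (34.8%), with 3532 (20.1%) higher and 2588 (14.7%) lower at E18.5. The stages did not overlap in 12759 genes (72.6%). The median log2 fold change of all genes tested was 0.01. The first principal component held 89.46% of the variance and separated the stages, and the biological coefficient of variation was 0.1291. The 41 gene lists described below are read against these shares, and "rose" or "fell" means past an adjusted p of 0.05. The lists were chosen with earlier results of these data known, so their counts describe them and test nothing. Since the tissue was measured in bulk, fewer cells of a type and less RNA per cell cannot be told apart.

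**Figure D1:**
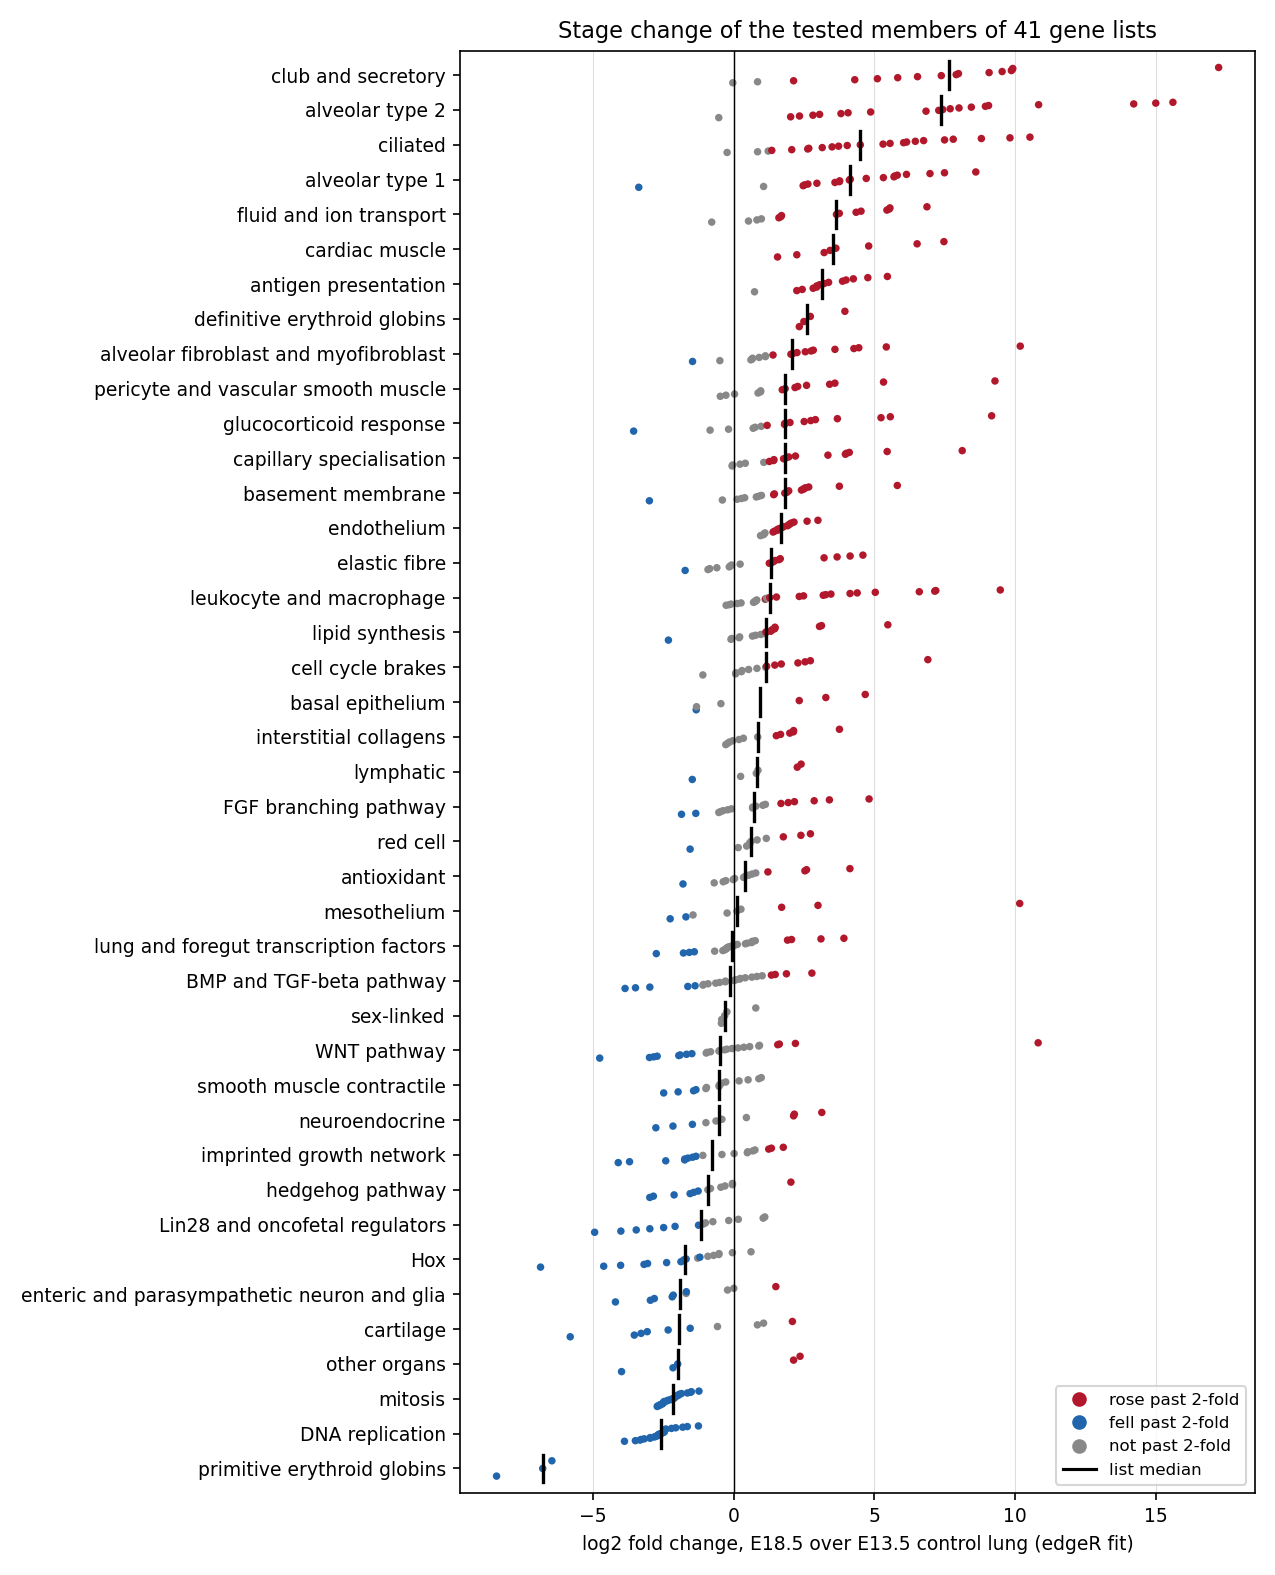
Log2 fold change of each tested gene, E18.5 over E13.5 control lung, by gene list, with lists ordered by their median. Points are genes, coloured red where they rose and blue where they fell past 2-fold and grey otherwise, and the black bar is the list's median, which runs from -6.80 in embryonic globins to 7.64 in the club and secretory list.

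Genes of lung identity were expressed in every library, and Sox9, Sox2 and Foxp2, regulators of the early epithelium, fell. Nkx2-1, the transcription factor that defines the lung epithelium, had 234, 307, 341 and 377 CPM at E18.5, against 218, 193, 177, 215 and 211 CPM at E13.5 (log2 fold change 0.63, SE 0.118, edgeR adjusted p = 0.000276). Each E18.5 lung lay above every E13.5 lung, by little in E18.5 lung 1. Foxf1, the forkhead factor of the lung mesenchyme, had 176, 213, 157 and 192 CPM at E18.5, against 164, 239, 190.4, 209 and 192 CPM at E13.5. The stages overlapped and the change did not pass (log2 fold change -0.11, edgeR adjusted p = 0.376). So a defining gene of each tissue layer was present at both stages. Sox9, which marks the growing distal tips, had 15.7, 18.2, 18.1 and 25.2 CPM at E18.5, against 67.8, 71.4, 64.4, 61.1 and 69 CPM at E13.5, without overlap (log2 fold change -1.79, SE 0.118, edgeR adjusted p = 8.57e-09). Sox2, the factor of the proximal airway, fell as well (4.44 to 6.05 CPM at E18.5, against 11.1 to 16.3 CPM at E13.5, log2 fold change -1.40). Foxp2, a forkhead repressor of the distal epithelium, did so too (34.5 to 44.5 CPM at E18.5, against 111 to 124 CPM at E13.5, log2 fold change -1.58). Foxa2, a partner of Nkx2-1 in epithelial genes, fell slightly (30.9 to 41.5 CPM at E18.5, against 43 to 48.4 CPM at E13.5, log2 fold change -0.34). Cebpa, a factor of maturing alveolar epithelium, rose to 128, 141, 148 and 169 CPM at E18.5, against 10.4, 7.92, 8.48, 11.2 and 10.4 CPM at E13.5 (log2 fold change 3.92, SE 0.111, edgeR adjusted p = 3.6e-12). Of 26 tested lung transcription factors, 10 rose and 10 fell, 4 and 4 of them past 2-fold, with a median log2 fold change of -0.05. These counts are near the shares of all genes, of which 40.4% rose and 39.6% fell, 20.1% and 14.7% past 2-fold.

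Genes of surfactant and of the type 2 cell rose together. Sftpc (chromosome 14, 70520949 to 70524081, GRCm38), which codes for the type 2 cell's own surfactant protein C, had 9566, 8966, 9648 and 10425 CPM at E18.5, against 45.5, 11.9, 31.3, 56.6 and 41.9 CPM at E13.5. Every E18.5 lung stood far above every E13.5 lung, and E13.5 lung 2 held the lowest level (log2 fold change 8.01, SE 0.46, edgeR adjusted p = 2.29e-07). Sftpb (chromosome 6, 72304610 to 72314371), the hydrophobic protein that surfactant films need, had 2313, 2353, 2611 and 2788 CPM at E18.5, against 16, 12.8, 13.2, 15.2 and 15.7 CPM at E13.5 (log2 fold change 7.43, SE 0.105, edgeR adjusted p = 1.3e-14). Sftpa1, a collectin that binds microbes, had 1401, 1332, 1351 and 1332 CPM at E18.5, against 3.46, 2.72, 4.28, 4.63 and 4.32 CPM at E13.5 (log2 fold change 8.45, SE 0.136, edgeR adjusted p = 2.97e-14). Sftpd (chromosome 14, 41172214 to 41185149), the other surfactant collectin, had 228, 209.6, 223 and 257 CPM at E18.5 and 0 reads in all 5 E13.5 lungs. Against a floor of 3 counts over the E13.5 group, it was at least 10187-fold higher. Transcripts of the other 3 were thus already present in every E13.5 lung. In mean RPKM, the order at E18.5 was Sftpc at 9334, Sftpb at 1279, Sftpa1 at 473 and Sftpd at 94.9, and at E13.5 it was Sftpc at 36.2, Sftpb at 7.4 and Sftpa1 at 1.36.

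The machinery that loads and stores surfactant rose too. Abca3, the lipid pump of lamellar bodies, had 807, 634, 879.8 and 877 CPM at E18.5, against 40.9, 20.005, 33.6, 21.3 and 21.2 CPM at E13.5 (log2 fold change 4.87, SE 0.238, edgeR adjusted p = 5.7e-09). Lamp3, a membrane protein of lamellar bodies, had 544, 556, 601 and 632 CPM at E18.5, against 3.91, 1.54, 3.61, 5.08 and 4.51 CPM at E13.5 (log2 fold change 7.29, SE 0.238, edgeR adjusted p = 7.31e-11). Slc34a2, the phosphate transporter of type 2 cells, had 2145, 2054, 2382 and 2381 CPM at E18.5, against 0.139, 0.0717, 0.084, 0.111 and 0.156 CPM at E13.5, a 19967-fold difference of means. All 3 were without overlap between the stages. Lyz1, a lysozyme of murine type 2 cells, had 2702, 2047, 2012 and 2732 CPM at E18.5, against 0.104, 0.108, 0, 0.0741 and 0.0389 CPM at E13.5, and a near-identical copy, Lyz2, makes the split of reads uncertain. S100g, a calcium-binding protein, had 21.6, 18.4, 21.2 and 27.4 CPM at E18.5, against 1 read in the 5 E13.5 lungs together. Of 20 type 2 genes tested, 19 rose, each of them past 2-fold, where 20.1% of all genes did so, and the median log2 fold change was 7.36. The exception was Etv5, an ETS factor downstream of FGF signalling, which fell (183 to 221 CPM at E18.5, against 254 to 335 CPM at E13.5, log2 fold change -0.53).

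The promoter of Sftpb is shown because textbook binding words of NKX2-1 and FOXA factors lie in it close to the start of transcription. The window runs from 250 bases before to 50 bases after the start, from RefSeq on GRCm38.p6, at chr6:72304360-72304659 on the plus strand, and capitals mark CTCAAG at -100 and -15 and GCAAACA at -88.
Sftpb promoter: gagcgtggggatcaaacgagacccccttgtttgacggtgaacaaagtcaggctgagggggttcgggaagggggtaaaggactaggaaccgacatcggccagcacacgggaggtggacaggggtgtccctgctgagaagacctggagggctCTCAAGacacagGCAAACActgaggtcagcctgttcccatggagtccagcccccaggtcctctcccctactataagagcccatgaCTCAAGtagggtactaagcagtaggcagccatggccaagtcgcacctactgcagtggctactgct
The word CTCAAG, searched on both strands, was in 5 of 18 promoters of 16 type 2 genes (27.8%), in 4 of 28 promoters of 17 type 1 genes (14.3%) and in 15.9% of all 32851 promoters. GCAAACA was in 1 of the 18 type 2 promoters (5.56%) and in 5.07% of all promoters. These matches describe letters in the window and are no evidence of binding.

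Type 1 cell genes rose in nearly the whole list. Ager (chromosome 17, 34597862 to 34600936), the receptor for advanced glycation end products found on the flat cell's basal membrane, had 1780.2, 1742, 1655 and 1820.4 CPM at E18.5, against 29.3, 24.9, 21.7, 25 and 22.9 CPM at E13.5 (log2 fold change 6.14, SE 0.096, edgeR adjusted p = 1.96e-14). Hopx, a homeodomain protein of type 1 cells, had 224, 253, 252 and 269 CPM at E18.5, against 4.88, 3.55, 4.2, 6.48 and 4.44 CPM at E13.5 (log2 fold change 5.72, SE 0.134, edgeR adjusted p = 1.33e-12), and 27.2% of its exon bases overlap another gene. Aqp5, the apical water channel, had 161, 211, 161 and 163 CPM at E18.5, against 0.554, 0.43, 0.504, 0.296 and 0.428 CPM at E13.5 (log2 fold change 8.61, SE 0.141, edgeR adjusted p = 2.97e-14). No E13.5 lung reached the level of any E18.5 lung for these 3 genes, and Aqp5 was under 1 CPM in all 5 E13.5 lungs. Pdpn, podoplanin, rose less (97.7 to 124 CPM at E18.5, against 17.8 to 21.9 CPM at E13.5, log2 fold change 2.47). Cldn18 codes for a tight junction protein (535 to 636 CPM at E18.5, against 50.1 to 92.2 CPM at E13.5, log2 fold change 2.96). Rtkn2, a gene of type 1 cells, rose likewise (195 to 285 CPM at E18.5, against 13.9 to 15 CPM at E13.5, log2 fold change 4.11). Vegfa, the growth factor that type 1 cells supply to capillaries, rose by 2.52 on the log2 scale (997 to 1144 CPM at E18.5, against 170.0 to 195 CPM at E13.5). Of 20 type 1 genes, 19 rose, 18 past 2-fold, with a median log2 fold change of 4.13. Igfbp2, an insulin-like growth factor binding protein of type 1 cells in adult mice, was the exception and fell to 11.1, 13, 11 and 11.9 CPM at E18.5, against 118, 125, 121, 110.5 and 137 CPM at E13.5 (log2 fold change -3.38, SE 0.0841, edgeR adjusted p = 8.95e-13).

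**Figure D2:**
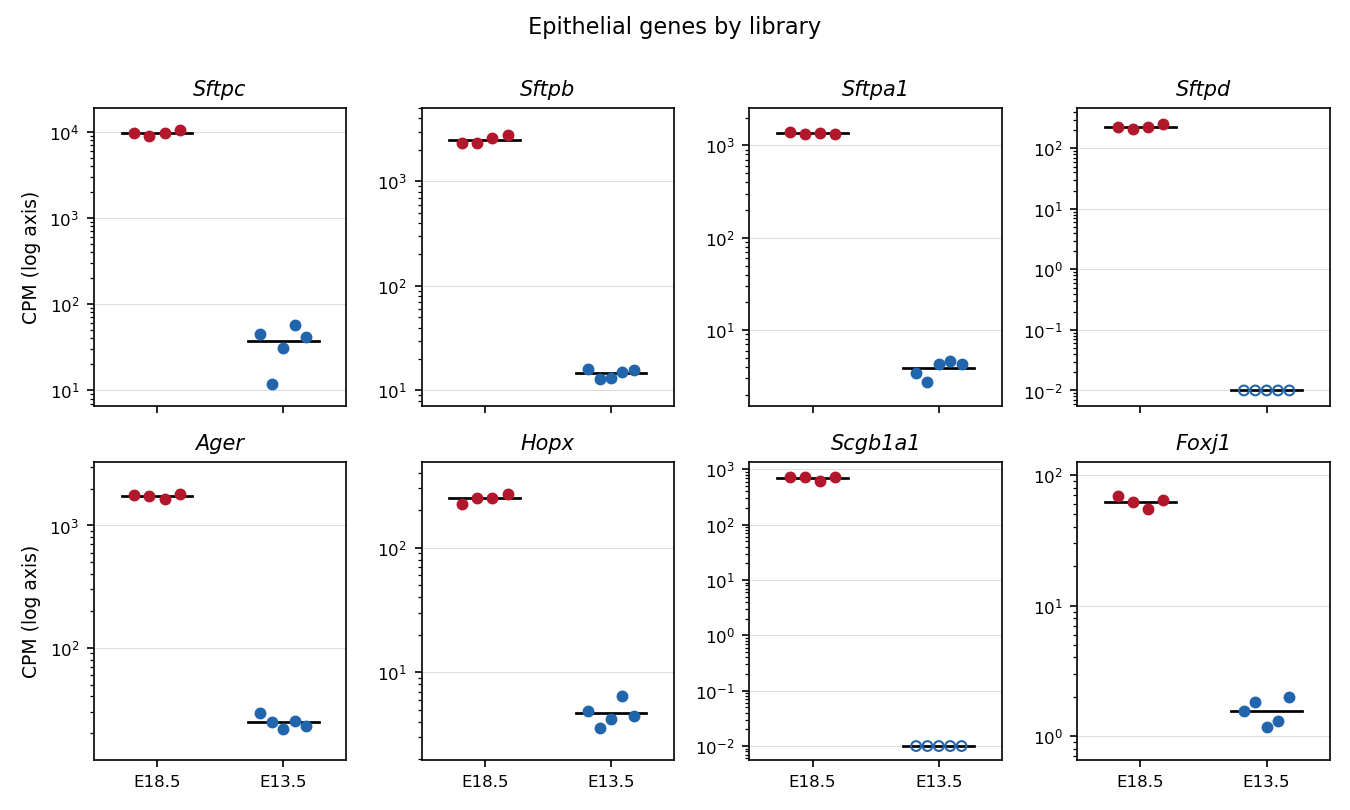
Levels of 8 epithelial genes in each control lung in CPM, on a logarithmic axis, with E18.5 at the left and E13.5 at the right of each gene; bars are means and open symbols are libraries with 0 reads, drawn at 0.01 CPM. The stages are apart for every gene shown, and all 5 E13.5 lungs are at 0 for Sftpd and Scgb1a1.

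Genes for the lipid part of surfactant rose in most cases. Fasn, fatty acid synthase, had 1033, 1015, 1010.2 and 1376 CPM at E18.5, against 493, 379, 453, 347 and 338 CPM at E13.5 (log2 fold change 1.46, SE 0.129, edgeR adjusted p = 2.93e-07). Scd1, which makes monounsaturated fatty acids, had 872, 631, 968 and 1035 CPM at E18.5, against 18.7, 28.8, 19.6, 14.9 and 16.3 CPM at E13.5 (log2 fold change 5.48, SE 0.213, edgeR adjusted p = 2.85e-10). Both were without overlap between the stages, and E18.5 lung 4 was the highest in each. Pcyt1a, the rate-limiting enzyme of phosphatidylcholine synthesis, rose (146 to 159.7 CPM at E18.5, against 64.2 to 77.7 CPM at E13.5, log2 fold change 1.14). Srebf1, a transcription factor of lipid synthesis, rose but not past 2-fold (192 to 254 CPM at E18.5, against 87.5 to 107 CPM at E13.5, log2 fold change 1.11). Elovl6, which lengthens saturated fatty acids, fell (15.2 to 17.6 CPM at E18.5, against 75.6 to 97.2 CPM at E13.5, log2 fold change -2.33). In all, 16 of 20 lipid genes rose, 10 past 2-fold, and the median was 1.14.

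Transporters of salt and water rose in nearly the whole list, and they included genes that serve to clear lung liquid at birth and genes that serve to secrete it before. Scnn1a, the alpha subunit of the epithelial sodium channel, had 414, 373, 324 and 365 CPM at E18.5, against 3.36, 2.9, 3.65, 3.15 and 2.72 CPM at E13.5 (log2 fold change 6.87, SE 0.101, edgeR adjusted p = 1.3e-14). Scnn1b, its beta subunit, rose too (65.4 to 70.7 CPM at E18.5, against 1.04 to 1.78 CPM at E13.5, log2 fold change 5.53). Atp1b1 codes for a subunit of the sodium pump (262 to 337 CPM at E18.5, against 17.1 to 26.6 CPM at E13.5, log2 fold change 3.75). The sodium channel subunits belong to the absorbing side, and none of the 3 genes overlapped between the stages. Aqp1, a water channel of endothelium, had 916, 932, 811 and 843 CPM at E18.5, against 44, 32.1, 44.5, 48.1 and 46.2 CPM at E13.5 (log2 fold change 4.35, SE 0.112, edgeR adjusted p = 1.32e-12). On the secretory side, Cftr, the chloride channel, had 48.6, 56.8, 93.5 and 65.5 CPM at E18.5, against 23.1, 12.7, 23, 25.7 and 24.3 CPM at E13.5, with E13.5 lung 2 lowest (log2 fold change 1.604, SE 0.22, edgeR adjusted p = 3.71e-05). Slc12a2, which loads chloride into secreting cells, rose by 1.67 on the log2 scale (307 to 368 CPM at E18.5, against 90.0 to 123 CPM at E13.5). Only Clcn2, another chloride channel, fell among the 15 tested (20.7 to 26.2 CPM at E18.5, against 38.1 to 44.9 CPM at E13.5, log2 fold change -0.78), against 14 that rose, 11 past 2-fold, with a median of 3.65.

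Genes of secretory and ciliated airway cells rose. Scgb1a1 (chromosome 19, 9083636 to 9087958), secretoglobin of the club cell, had 735, 739, 626 and 732 CPM at E18.5 and 0 reads in all 5 E13.5 lungs, so it was at least 31452-fold higher. Scgb3a2, a secretoglobin of early airway cells, was already present at E13.5, with 648, 531, 508 and 511 CPM at E18.5, against 2.77, 0.359, 1.47, 3.48 and 3.31 CPM at E13.5, and E13.5 lung 2 was the lowest. The rise was 7.91 on the log2 scale (SE 0.403, edgeR adjusted p = 4.96e-08). Cbr2, a carbonyl reductase, rose (465 to 541 CPM at E18.5, against 0.215 to 1.04 CPM at E13.5, log2 fold change 9.90). The cytochromes Cyp2f2 (162 to 196 CPM at E18.5, against 0.0359 to 0.445 CPM at E13.5, log2 fold change 9.87) and Cyp4b1 (59.3 to 73.6 CPM at E18.5, against 0.251 to 1.07 CPM at E13.5, log2 fold change 6.53), which act on foreign compounds, rose with it. Without E13.5 lung 4 the log2 fold change of Cyp2f2 was 10.46. Of 16 club and secretory genes tested, 15 rose and none fell, 14 of them past 2-fold, with a median of 7.64, or 7.50 with genes at 0 reads set to their bounds.

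Foxj1, the master regulator of motile cilia, had 69.5, 62, 54.7 and 64.1 CPM at E18.5, against 1.56, 1.83, 1.18, 1.3 and 1.98 CPM at E13.5 (log2 fold change 5.31, SE 0.13, edgeR adjusted p = 7.71e-13). The stages were apart, and E13.5 lungs held 1.18 to 1.98 CPM. Mcidas, which starts the multiciliated programme, had 5.29, 6.2, 5.04 and 7.44 CPM at E18.5, against 0.485, 0.43, 0.21, 0.63 and 0.467 CPM at E13.5 (log2 fold change 3.73, SE 0.241, edgeR adjusted p = 5.85e-09). Deup1, which builds the many centrioles of these cells, rose (10.2 to 15.9 CPM at E18.5, against 0.0741 to 0.323 CPM at E13.5, log2 fold change 6.04). Dnah5, a heavy chain of the outer dynein arm, rested on 5 reads or fewer at E13.5 (16.4 to 21.2 CPM at E18.5, against 0 to 0.0717 CPM at E13.5, log2 fold change 8.80). Ccdc39, which sets the spacing of dynein arms, rose less (16.8 to 21.2 CPM at E18.5, against 7.0 to 8.6 CPM at E13.5, log2 fold change 1.35). Rfx3, a cilium regulator that many tissues use, overlapped between stages (21.9 to 36.4 CPM at E18.5, against 28.4 to 44.1 CPM at E13.5, log2 fold change -0.24, edgeR adjusted p = 0.171), and fell when E18.5 lung 3 was left out (log2 fold change -0.36, edgeR adjusted p = 0.0438). In all, 22 of 23 ciliated genes rose, 20 past 2-fold, none fell, and the median was 4.50.

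Basal cells line mainly the trachea and main bronchi, and their genes were sparse in these lobes. Krt5 held at most 0.188 CPM at E18.5 and 0.717 CPM at E13.5 and was too low to test. Trp63, the basal cell factor, had 0.941, 0.501, 0.493 and 0.123 CPM at E18.5, against 1.28, 1.29, 1.93, 1.0 and 1.09 CPM at E13.5, and it fell by edgeR (log2 fold change -1.33, adjusted p = 0.00786) but not with all 20 lung libraries in the fit (adjusted p = 0.0669). Krt15, a keratin, rose (29.5 to 40.8 CPM at E18.5, against 2.15 to 5.33 CPM at E13.5, log2 fold change 3.27). Ngfr, a receptor that nerves also express, fell (12.9 to 20.9 CPM at E18.5, against 38 to 47.1 CPM at E13.5, log2 fold change -1.34). The list's median was 0.94 over 6 genes. Among genes of pulmonary neuroendocrine cells, the peptide genes Calca (1.31 to 3.51 CPM at E18.5, against 0.378 to 0.667 CPM at E13.5, log2 fold change 2.13) and Grp (3.83 to 5.71 CPM at E18.5, against 0.86 to 1.33 CPM at E13.5, log2 fold change 2.15) rose, though both are low. The prohormone convertase Pcsk1 rose below 1 CPM (0.523 to 0.846 CPM at E18.5, against 0 to 0.139 CPM at E13.5, log2 fold change 3.13). Chga, chromogranin A, stayed under 0.6 CPM in every lung and was not tested. Of 10 tested, 3 rose and 4 fell, where 40.4% of all genes rose and 39.6% fell, with a median of -0.53.

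Every gene of mitosis and of DNA replication that was tested fell past 2-fold, 26 of 26 and 26 of 26, where 14.7% of all genes did so. Mki67, the proliferation antigen Ki-67, had 199, 219.9, 212 and 148 CPM at E18.5, against 589, 481, 583, 549.5 and 569 CPM at E13.5 (log2 fold change -1.51, SE 0.11, edgeR adjusted p = 2.47e-08). E18.5 lung 4 was the lowest of all, and the stages were far apart. Ccnb1, the mitotic cyclin, had 20.2, 30.1, 19.97 and 13.4 CPM at E18.5, against 133, 149, 135, 141 and 138 CPM at E13.5 (log2 fold change -2.72, SE 0.177, edgeR adjusted p = 2.44e-08). Cdk1, its kinase (chromosome 10, 69335146 to 69352938), had 53.5, 77.7, 55.1 and 48.6 CPM at E18.5, against 228, 244, 244, 259 and 256 CPM at E13.5 (log2 fold change -2.06, SE 0.12, edgeR adjusted p = 3.96e-09). Plk1, a kinase of spindle assembly, had 15.9, 32.2, 19.2 and 18.8 CPM at E18.5, against 112, 138, 124, 126.2 and 130.4 CPM at E13.5 (log2 fold change -2.55, SE 0.176, edgeR adjusted p = 4.2e-08). In Ccnb1, Cdk1 and Plk1, E18.5 lung 2 was the highest of its stage but still far below every E13.5 lung. Top2a, the topoisomerase that untangles chromosomes, fell as well (138 to 232 CPM at E18.5, against 649 to 763 CPM at E13.5, log2 fold change -1.98). Ccna2, a cyclin of S phase and mitosis, fell further (43.7 to 69.5 CPM at E18.5, against 257 to 278 CPM at E13.5, log2 fold change -2.34). The median of the mitosis list was -2.17.

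The replication list had a median of -2.60. Mcm5 (chromosome 8, 75109569 to 75128439), a subunit of the replicative helicase, had 32.5, 51.9, 36.7 and 33.5 CPM at E18.5, against 311, 298, 304, 303 and 309 CPM at E13.5 (log2 fold change -2.98, SE 0.126, edgeR adjusted p = 2e-10). Pcna, the sliding clamp, had 33.7, 58.3, 42.3 and 35.4 CPM at E18.5, against 257, 264, 264, 301 and 288 CPM at E13.5 (log2 fold change -2.69, SE 0.147, edgeR adjusted p = 3.4e-09). Rrm2, which supplies deoxynucleotides, had 31.5, 48.6, 25.7 and 27.2 CPM at E18.5, against 196, 219, 223, 215 and 215 CPM at E13.5 (log2 fold change -2.68, SE 0.164, edgeR adjusted p = 1.13e-08). E18.5 lung 2 was again the highest at its stage in all 3 genes, and the E13.5 lungs lay close together. Mcm2, another helicase subunit, had a log2 fold change of -2.45, and E2f1, the factor that drives these genes, fell least among those named (20.7 to 27 CPM at E18.5, against 58.1 to 60.7 CPM at E13.5, log2 fold change -1.26). In the opposite direction, 12 of 15 genes that restrain the cycle rose, 7 past 2-fold, with a median of 1.13. Cdkn1a, the inhibitor p21, had 71.2, 47.7, 34 and 40.8 CPM at E18.5, against 7.65, 9.07, 6.42, 7.34 and 6.07 CPM at E13.5 (log2 fold change 2.72, SE 0.198, edgeR adjusted p = 5.34e-08). Btg2, an antiproliferative gene, had 337, 346, 254 and 259 CPM at E18.5, against 67.8, 50.2, 59.9, 66.1 and 63.6 CPM at E13.5 (log2 fold change 2.28, SE 0.114, edgeR adjusted p = 9.83e-10). Cdkn1c, an imprinted inhibitor of embryonic growth, fell instead (108 to 129.5 CPM at E18.5, against 224 to 278 CPM at E13.5, log2 fold change -1.10), though 30.7% of its exon bases overlap another gene.

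**Figure D3:**
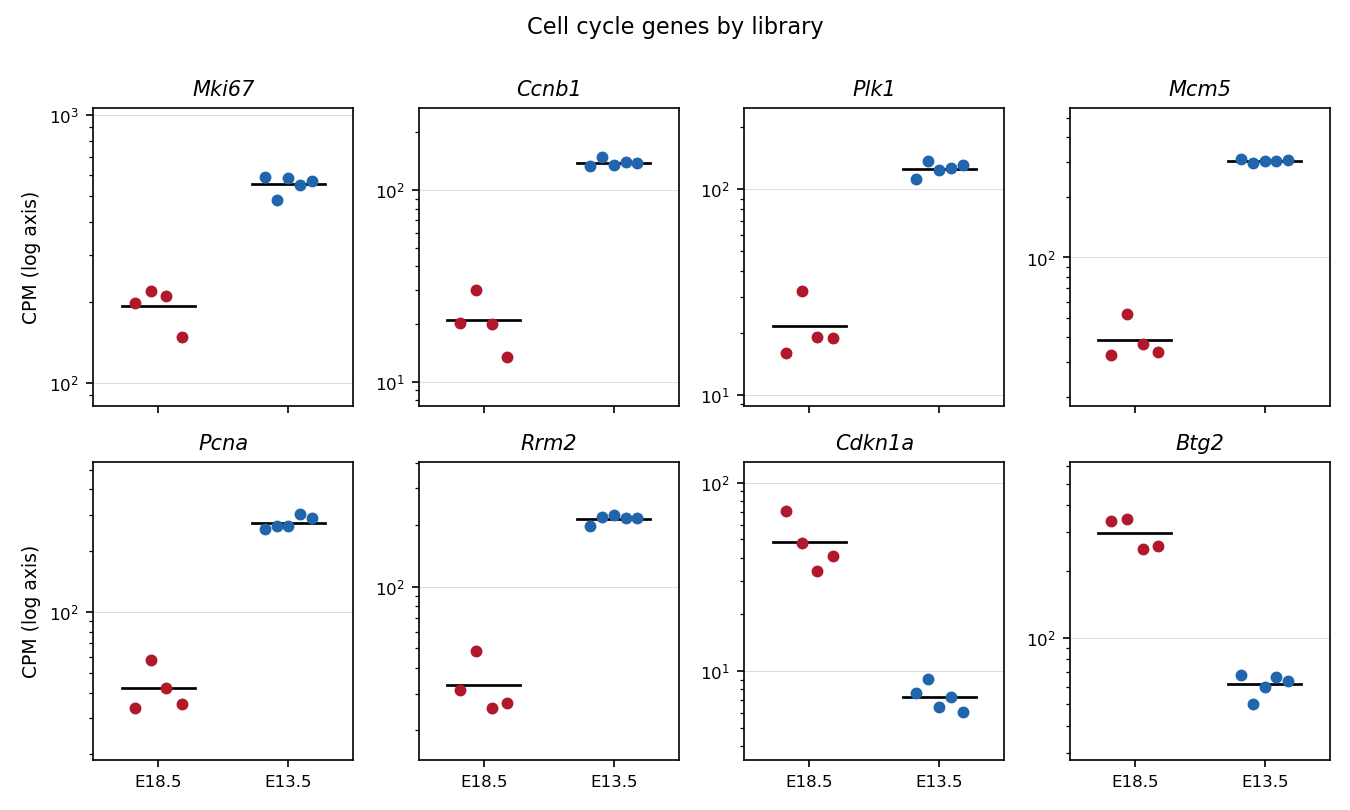
Levels of 6 cell cycle genes and 2 genes that restrain the cycle (Cdkn1a and Btg2) in each control lung in CPM, on a logarithmic axis, with E18.5 at the left and E13.5 at the right; bars are means. The 6 cell cycle genes are lower in every E18.5 lung, with E18.5 lung 2 the highest of its stage in all of them, and Cdkn1a and Btg2 are higher.

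Promoters of 3 of these genes are shown, since mitotic and replication genes are known to carry different promoter words: the CHR, or cell cycle genes homology region (TTTGAA), with CCAAT boxes in mitotic genes, and E2F sites in replication genes. Windows are as for Sftpb, from RefSeq on GRCm38.p6, and capitals mark the CHR, the CCAAT box on either strand (ATTGG on the minus strand), and the E2F words named below. The Cdk1 window is chr10:69352863-69353162 on the minus strand, with TTTGAA at -71 and -15, ATTGG at -208, -80 and -48, and TTTCGCGC at -131. The Plk1 window is chr7:122159185-122159484 on the plus strand, with CCAAT at -14 and TTTGAA at 31. The Mcm5 window is chr8:75109259-75109558 on the plus strand, with TTTCGCGC at -153 and, overlapping it, GCGCCAAA at -149, and its CCAAT boxes are left in lower case.
Cdk1 promoter: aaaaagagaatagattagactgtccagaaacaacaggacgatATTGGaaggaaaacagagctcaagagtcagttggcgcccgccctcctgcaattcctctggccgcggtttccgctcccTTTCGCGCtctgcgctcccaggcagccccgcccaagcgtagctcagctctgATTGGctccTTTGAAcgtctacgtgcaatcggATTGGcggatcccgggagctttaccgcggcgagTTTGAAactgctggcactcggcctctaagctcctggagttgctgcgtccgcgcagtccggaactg
Plk1 promoter: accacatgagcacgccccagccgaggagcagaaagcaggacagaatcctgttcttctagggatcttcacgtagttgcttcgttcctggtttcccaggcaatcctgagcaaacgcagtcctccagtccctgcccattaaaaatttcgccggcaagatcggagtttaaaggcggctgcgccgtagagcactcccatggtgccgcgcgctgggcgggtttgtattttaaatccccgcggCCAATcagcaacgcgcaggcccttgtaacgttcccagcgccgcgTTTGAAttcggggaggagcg
Mcm5 promoter: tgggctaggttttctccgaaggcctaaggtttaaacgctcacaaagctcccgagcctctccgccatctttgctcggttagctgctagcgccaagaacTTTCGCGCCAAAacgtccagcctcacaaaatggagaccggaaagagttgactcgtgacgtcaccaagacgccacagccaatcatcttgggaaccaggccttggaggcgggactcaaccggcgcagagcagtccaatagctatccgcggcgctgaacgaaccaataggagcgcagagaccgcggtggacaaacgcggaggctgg
TTTGAA, on either strand, was in 18 of 23 promoters of 22 mitosis genes (78.3%), in 3 of 25 promoters of 20 replication genes (12%) and in 17.9% of all promoters. CCAAT was in 21 of the mitosis promoters (91.3%), 14 of the replication promoters (56.0%) and 37.4% of all. Any of TTTCCCGC, TTTGGCGC, TTTCGCGC and TTTGCCGC was in 1 of the mitosis promoters (4.35%), 9 of the replication promoters (36.0%) and 2.26% of all. All tested genes of both lists fell, so the words differ between the lists and the direction of change does not.

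Most tested genes in a list of LIN28 proteins and other regulators of embryonic growth fell. LIN28 proteins block let-7 microRNAs, but not every gene of the list had a let-7 site of the kind searched for below. Hmga2, a chromatin protein of embryonic cells, had 13, 17.7, 13.9 and 15.3 CPM at E18.5, against 201, 340.1, 263, 202 and 209 CPM at E13.5 (log2 fold change -4.02, SE 0.184, edgeR adjusted p = 9.55e-10). The stages were far apart, with E13.5 lung 2 the highest. Lin28b, which blocks let-7 processing, had 0.453, 0.219, 0.739 and 0.534 CPM at E18.5, against 4.95, 6.45, 6.88, 5.11 and 3.46 CPM at E13.5 (log2 fold change -3.47, SE 0.309, edgeR adjusted p = 1.66e-07). Igf2bp1, an RNA-binding protein of growth mRNAs, had 47.2, 44.1, 47.2 and 44.9 CPM at E18.5, against 200.3, 211, 208, 175 and 181 CPM at E13.5 (log2 fold change -2.09, SE 0.0702, edgeR adjusted p = 1.13e-11). Its relative Igf2bp3 fell less (31.7 to 35.6 CPM at E18.5, against 63.9 to 85.8 CPM at E13.5, log2 fold change -1.08). Arid3b (16.6 to 21.3 CPM at E18.5, against 6.69 to 12.7 CPM at E13.5, log2 fold change 1.10), a DNA-binding protein, and the orphan receptor Nr6a1 (7.15 to 11.9 CPM at E18.5, against 4.48 to 5.16 CPM at E13.5, log2 fold change 1.04) rose against the list. Lin28a was under 0.7 CPM in every lung and was not tested. Of 14 genes tested, 10 fell, 7 past 2-fold, and 2 rose, with a median of -1.17.

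Sequences of let-7 and of its sites in 3 of these messages are shown to place the list beside the pathway it is named for; no microRNA was measured here. The seed, bases 2 to 8, is in capitals in the mature forms from RefSeq, let-7a-5p at chr13:48538239-48538260 on the minus strand and let-7g-5p at chr9:106178846-106178867 on the plus strand, and let-7a, b, c, d, e, f, g, i and k and miR-98 share it. In the message sites (GRCm38), capitals mark CTACCTCA, the complement of the seed followed by A. They lie in the 3′ UTRs of Hmga2 at chr10:120364224-120364245, Lin28b at chr10:45381022-45381043 and Igf2bp1 at chr11:95961778-95961799, all on the minus strand.
let-7a-5p: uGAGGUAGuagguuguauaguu
let-7g-5p: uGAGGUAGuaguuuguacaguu
Hmga2 site: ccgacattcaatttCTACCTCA
Lin28b site: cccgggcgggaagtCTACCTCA
Igf2bp1 site: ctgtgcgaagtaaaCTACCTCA
Igf2bp1 and Nr6a1 each had 3 such sites and moved in opposite directions. Plag1, Arid3b, Dnmt3b, Hmga1 and Tet1, also of the list, had no such site. Over all 14640 coding genes tested with a 3′ UTR, 506 had 1 site, and among these the median log2 fold change was -0.0037 and 13% had fallen past 2-fold. Another 27 had at least 2 sites, and their median was 0.571, with 6 risen and 6 fallen (22.2%) past 2-fold. Their 3′ UTRs were longer, with a median of 3635 bases against 1125 in genes with no site. Among the 14107 genes with no site the median was 0.0103 and 14.6% had fallen past 2-fold.

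Imprinted genes that form a growth network split. Igf2, the fetal growth factor, had 9.86, 11.7, 12.6 and 12.4 CPM at E18.5, against 149.5, 166, 146, 138 and 159.6 CPM at E13.5 (log2 fold change -3.71, SE 0.0888, edgeR adjusted p = 6.59e-13), although 64.5% of its exon bases overlap another gene. H19, the maternally expressed RNA next to it, had 989.8, 1242, 1099 and 1175 CPM at E18.5, against 3822, 4035, 3567, 3599 and 3815 CPM at E13.5 (log2 fold change -1.74, SE 0.0767, edgeR adjusted p = 1.36e-10). Peg3 fell slightly (409 to 709 CPM at E18.5, against 641 to 822 CPM at E13.5, log2 fold change -0.42), but its adjusted p was 0.0612 when E13.5 lungs 1 and 2 were left out. Dlk1, a relative of Notch ligands, rose (1218 to 1871 CPM at E18.5, against 544 to 658 CPM at E13.5, log2 fold change 1.34). Its neighbour Meg3, a noncoding RNA, rose with it (1410.2 to 1878 CPM at E18.5, against 615 to 726 CPM at E13.5, log2 fold change 1.24). With GC content and length corrected, the rise of Meg3 was 0.59. Mest (939 to 1228 CPM at E18.5, against 774 to 815 CPM at E13.5, log2 fold change 0.49) and Gnas (91.1 to 140.0 CPM at E18.5, against 32.6 to 39.1 CPM at E13.5, log2 fold change 1.76) rose too, where 23.1% and 22% of exon bases overlap other genes. Of 18 tested, 7 rose and 10 fell, 3 and 8 past 2-fold, where 40.4% of all genes rose and 39.6% fell, 20.1% and 14.7% past 2-fold.

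In the mesenchyme, most contractile genes of smooth muscle that were tested fell, fewer of them past 2-fold. Acta2, smooth muscle actin, had 128, 136, 105 and 119 CPM at E18.5, against 336, 349, 278, 351 and 332 CPM at E13.5 (log2 fold change -1.43, SE 0.0902, edgeR adjusted p = 4.51e-09). Cnn1, calponin, had 6.13, 5.95, 4.58 and 3.86 CPM at E18.5, against 31.2, 24.7, 24.8, 32.1 and 32.4 CPM at E13.5 (log2 fold change -2.49, SE 0.148, edgeR adjusted p = 2.96e-09). Both were lower in every E18.5 lung. Myh11, the smooth muscle myosin heavy chain, fell less (99.8 to 114 CPM at E18.5, against 118 to 205 CPM at E13.5, log2 fold change -0.52). Des, desmin, overlapped between the stages (49.2 to 57.9 CPM at E18.5, against 41.3 to 52.8 CPM at E13.5, log2 fold change 0.19, edgeR adjusted p = 0.0628). The change of Des passed when E18.5 lung 1 (edgeR adjusted p = 0.0484), E18.5 lung 3 (0.0407) or E13.5 lung 5 (0.034) was left out. It also passed with a replicate block (edgeR adjusted p = 0.0346), which leaves out E13.5 lung 5 as well. Mylk, the kinase that starts contraction, rose to 834, 732, 807 and 754 CPM at E18.5, against 429.8, 314, 411, 418 and 415 CPM at E13.5 (log2 fold change 0.98), although not past 2-fold. Tagln rose as well (3.1 to 5.39 CPM at E18.5, against 1.94 to 2.89 CPM at E13.5, log2 fold change 0.89), but 67.9% of its exon bases overlap another gene, and reads of overlapping genes were not counted. Of 15 contractile genes, 3 rose and 10 fell, with a median of -0.52. The floxed Myocd allele that all these lungs carry was not tested for its part in this list. Pericyte and vascular smooth muscle genes moved the other way, 12 of 15 up with a median of 1.83. Higd1b, a pericyte marker, had 64.5, 68.9, 65.7 and 75.3 CPM at E18.5, against 0.0346, 0.0717, 0.084, 0.148 and 0.195 CPM at E13.5 (log2 fold change 9.29, SE 0.166, edgeR adjusted p = 5.54e-14). Cspg4, the NG2 proteoglycan, rose (96.6 to 126.5 CPM at E18.5, against 26.4 to 38.9 CPM at E13.5, log2 fold change 1.83). Pdgfrb, the receptor that recruits pericytes, rose but not past 2-fold (326 to 416 CPM at E18.5, against 156 to 236 CPM at E13.5, log2 fold change 0.95). Notch3, which mural cells need, overlapped between the stages (213 to 273 CPM at E18.5, against 221 to 241 CPM at E13.5, log2 fold change 0.03, edgeR adjusted p = 0.732). Heyl, a Notch target, was lower by edgeR (31.1 to 59.2 CPM at E18.5, against 42.5 to 71.7 CPM at E13.5, log2 fold change -0.48, adjusted p = 0.043), a call lost in 8 of 20 alternatives.

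Fibroblast genes of the alveolar wall rose in 18 of 20 cases, 12 past 2-fold, with a median of 2.07. Tcf21, a factor of lipid-laden fibroblasts, had 428, 439, 405 and 409.7 CPM at E18.5, against 89.8, 93.2, 95.5, 99 and 108 CPM at E13.5 (log2 fold change 2.11, SE 0.0655, edgeR adjusted p = 5.54e-12). Npnt, a matrix ligand of integrins, had 1004, 1137, 1045 and 1006 CPM at E18.5, against 169, 155, 142, 158 and 156 CPM at E13.5 (log2 fold change 2.75, SE 0.0687, edgeR adjusted p = 9.23e-13). Inmt, a methyltransferase of lung fibroblasts, had 47.7, 33.7, 38.9 and 41.1 CPM at E18.5, against 0.0346, 0, 0.084, 0.0371 and 0 CPM at E13.5 (log2 fold change 10.19, or 10.79 without E13.5 lung 3). All 3 were without overlap. Pdgfra, the receptor of myofibroblast precursors, rose but not past 2-fold (248.6 to 347 CPM at E18.5, against 174 to 188 CPM at E13.5, log2 fold change 0.65). Plin2, which coats lipid droplets, did likewise (148 to 168 CPM at E18.5, against 81.7 to 92.4 CPM at E13.5, log2 fold change 0.90). Against the list, Gpc3, a glypican that restrains growth, fell (219.7 to 262 CPM at E18.5, against 592 to 729 CPM at E13.5, log2 fold change -1.47). Wnt2, a mesenchymal WNT, fell less (60.9 to 83.3 CPM at E18.5, against 91.6 to 125 CPM at E13.5, log2 fold change -0.50).

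Elastic fibre genes showed a switch of fibrillins. Eln (chromosome 5, 134702593 to 134747323), tropoelastin, had 8759, 10028, 7305 and 8809 CPM at E18.5, against 462, 271, 321, 362 and 393 CPM at E13.5 (log2 fold change 4.59, SE 0.153, edgeR adjusted p = 4.08e-11). On the RPKM scale it stood at 1077 at E18.5 and 44.7 at E13.5. Fbn2, the fibrillin of embryonic microfibrils, had 171, 141, 219.7 and 167 CPM at E18.5, against 669, 479.9, 624, 568 and 557 CPM at E13.5 (log2 fold change -1.73, SE 0.128, edgeR adjusted p = 4.45e-08). Fbn1, the fibrillin of later tissue, had 715, 541, 607 and 489.9 CPM at E18.5, against 278, 227, 251, 234 and 236 CPM at E13.5 (log2 fold change 1.26, SE 0.101, edgeR adjusted p = 6.03e-08), with 20.1% of exon bases shared with another gene. In RPKM, Fbn1 stood at 48.5 and Fbn2 at 16.7 at E18.5, whereas Fbn1 stood at 20.2 and Fbn2 at 55.3 at E13.5, so their order turned between the stages. Fbln5, which guides elastin onto microfibrils, rose (355 to 483 CPM at E18.5, against 24 to 42.3 CPM at E13.5, log2 fold change 3.67). Lox, which crosslinks elastin, rose less (348 to 423 CPM at E18.5, against 119.6 to 163 CPM at E13.5, log2 fold change 1.47). Mfap4, a microfibril protein, was among the 10 largest gains of CPM (2267 to 2795 CPM at E18.5, against 215 to 339.7 CPM at E13.5, log2 fold change 3.21). Mfap2, another microfibril protein, went against the list and fell (107 to 135 CPM at E18.5, against 192 to 244 CPM at E13.5, log2 fold change -0.92). In all, 10 of 18 rose, 10 past 2-fold, and 5 fell, with a median of 1.31.

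The interstitial collagens were mixed. Col3a1, the fibrillar collagen of soft tissue, overlapped between stages, with 2419, 2991, 2585 and 2383 CPM at E18.5, against 2521, 2552, 2796, 2606 and 2852 CPM at E13.5 (log2 fold change -0.04, edgeR adjusted p = 0.652). Col1a1 was slightly lower (997 to 1401 CPM at E18.5, against 1258 to 1649.6 CPM at E13.5, log2 fold change -0.29, edgeR adjusted p = 0.0313), a call lost when any of 5 single libraries was left out. Col5a2 fell likewise (471 to 580.2 CPM at E18.5, against 546 to 713 CPM at E13.5, log2 fold change -0.22), a call lost in 4 of 20 alternatives. Col6a1, a microfibrillar collagen, rose (1476 to 1755 CPM at E18.5, against 339 to 453 CPM at E13.5, log2 fold change 1.99), and 8 of 13 rose in all, with a median of 0.85. Basement membranes changed more. Col4a1, the ubiquitous type IV chain, had 5391, 5814, 4788 and 5817 CPM at E18.5, against 1042, 796, 953, 1017 and 1010.3 CPM at E13.5 (log2 fold change 2.50, SE 0.0898, edgeR adjusted p = 2.04e-11). Its partner Col4a2 moved with it (2575 to 3312 CPM at E18.5, against 470.4 to 553 CPM at E13.5, log2 fold change 2.55). Col4a3, a chain made by type 1 cells and kidney, had 354, 273, 275 and 256 CPM at E18.5, against 4.61, 4.77, 5.42, 5.97 and 4.94 CPM at E13.5 (log2 fold change 5.82, SE 0.115, edgeR adjusted p = 1.93e-13). Every E18.5 lung held more than 250 CPM of it and no E13.5 lung more than 6 CPM. The laminin chains turned: Lama3, of epithelial laminin 332, rose (333 to 509.8 CPM at E18.5, against 53.6 to 88.5 CPM at E13.5, log2 fold change 2.66), and Lama1, of the embryonic laminin 111, fell to 4.95, 3.85, 3.45 and 3.66 CPM at E18.5, against 39.1, 28.3, 32.2, 29.3 and 30.6 CPM at E13.5 (log2 fold change -3.002, SE 0.132, edgeR adjusted p = 1.36e-10). Col18a1, the source of endostatin, fell too (316 to 412 CPM at E18.5, against 445 to 498 CPM at E13.5, log2 fold change -0.41). Of 21 basement membrane genes, 18 rose, 13 past 2-fold, with a median of 1.81. Fn1, fibronectin, was among the 10 largest gains in CPM, with 5714, 5381, 4743 and 5081 CPM at E18.5, against 821, 486, 675, 559.8 and 576 CPM at E13.5.

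All 18 endothelial genes rose, 14 past 2-fold, with a median of 1.68. Pecam1, the adhesion molecule CD31, had 793, 782, 690.2 and 688 CPM at E18.5, against 193, 151, 174, 190.2 and 185 CPM at E13.5 (log2 fold change 2.05, SE 0.082, edgeR adjusted p = 5.63e-11). Cdh5, endothelial cadherin, had 1015, 1059, 944 and 1001 CPM at E18.5, against 282, 199, 259, 264 and 252 CPM at E13.5 (log2 fold change 2.0002, SE 0.0898, edgeR adjusted p = 1.61e-10). Kdr, the receptor of VEGF-A, rose (496 to 636 CPM at E18.5, against 112 to 147 CPM at E13.5, log2 fold change 2.14). These 3 were higher in every E18.5 lung than in any E13.5 lung. Cldn5, of endothelial tight junctions, rose with them (223 to 269.6 CPM at E18.5, against 59.9 to 70.6 CPM at E13.5, log2 fold change 1.91). Of 18 genes tied to the specialised lung capillaries, 15 rose, with a median of 1.81. Car4, a carbonic anhydrase of the aerocyte, the large capillary cell of gas exchange, had 44.7, 38.5, 35.2 and 37.2 CPM at E18.5, against 0.242, 0.0717, 0.042, 0.111 and 0.195 CPM at E13.5 (log2 fold change 8.12, SE 0.196, edgeR adjusted p = 6.72e-13). Kitl, the ligand of Kit, rose (232 to 287 CPM at E18.5, against 58.6 to 78.5 CPM at E13.5, log2 fold change 1.95). Not every gene of these cells rose, and the receptors that tell them apart in later lungs overlapped between the stages. Aplnr, of general capillary cells, did not pass (175 to 229 CPM at E18.5, against 165 to 222 CPM at E13.5, log2 fold change -0.04, edgeR adjusted p = 0.69). Apln, its ligand, rose slightly (42.6 to 67.3 CPM at E18.5, against 29.1 to 43.5 CPM at E13.5, log2 fold change 0.41, edgeR adjusted p = 0.0245), a call lost in 8 of 20 alternatives. Ednrb, of aerocytes, did not pass (120.4 to 164 CPM at E18.5, against 101 to 175 CPM at E13.5, log2 fold change 0.22, edgeR adjusted p = 0.225), but did so when E13.5 lung 2 was left out (log2 fold change 0.35, edgeR adjusted p = 0.00976). Lymphatic genes had a median of 0.83 over 6 genes. Prox1, the lymphatic master regulator, did not pass (4.85 to 11.3 CPM at E18.5, against 6.42 to 7.55 CPM at E13.5, log2 fold change 0.24), but rose when E18.5 lung 4 was left out (log2 fold change 0.42, edgeR adjusted p = 0.0327). Lyve1, which macrophages also express, rose (267 to 331 CPM at E18.5, against 43.1 to 64.3 CPM at E13.5, log2 fold change 2.39). The receptor Flt4 rose less (85 to 104 CPM at E18.5, against 49.9 to 54.2 CPM at E13.5, log2 fold change 0.86), and Mmrn1, a protein of lymphatic vessels and platelets, fell (23.1 to 33.2 CPM at E18.5, against 56.9 to 95.4 CPM at E13.5, log2 fold change -1.48).

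Leukocyte genes rose in 23 of 27 cases, 15 past 2-fold, and 0 fell, with a median of 1.28. Ptprc, the common leukocyte antigen CD45, had 16.6, 16, 15.3 and 14.5 CPM at E18.5, against 3.08, 3.08, 2.56, 2.74 and 2.49 CPM at E13.5 (log2 fold change 2.48, SE 0.11, edgeR adjusted p = 1.51e-10). Csf1r, the growth factor receptor of macrophages, had 66.2, 63.2, 67.3 and 61.8 CPM at E18.5, against 33.1, 26.9, 29.6, 26.5 and 31 CPM at E13.5 (log2 fold change 1.13, SE 0.0756, edgeR adjusted p = 8.05e-09). Mrc1, the mannose receptor of tissue macrophages, overlapped between the stages (44.7 to 55.9 CPM at E18.5, against 41.4 to 51.8 CPM at E13.5, log2 fold change 0.13, edgeR adjusted p = 0.192). So Csf1r and Mrc1 were both present at both stages, and of these only Csf1r passed the test. Lyz2, a lysozyme of macrophages and type 2 cells that shares reads with Lyz1, rose (621 to 894 CPM at E18.5, against 5.96 to 10.9 CPM at E13.5, log2 fold change 6.60). S100a8, of neutrophils, rose (7.54 to 13.8 CPM at E18.5, against 0.139 to 2.77 CPM at E13.5, log2 fold change 3.18). The B cell gene Cd79a stayed under 0.7 CPM in every lung. All 14 antigen presentation genes rose, 13 past 2-fold, with a median of 3.13. Cd74, the invariant chain of class II molecules, had 53.2, 51.8, 47.8 and 43.7 CPM at E18.5, against 1.94, 1.47, 1.47, 1.45 and 2.69 CPM at E13.5 (log2 fold change 4.77, SE 0.151, edgeR adjusted p = 8.09e-12). H2-Aa, a class II chain, had 13.1, 12.6, 11.2 and 12.9 CPM at E18.5, against 0.519, 0, 0.252, 0.222 and 0.389 CPM at E13.5 (log2 fold change 5.46, SE 0.348, edgeR adjusted p = 1.04e-08). H2-K1, a class I heavy chain with a close copy in H2-D1, rose (103 to 122 CPM at E18.5, against 14.7 to 23 CPM at E13.5, log2 fold change 2.43). B2m, its light chain, rose less (147 to 165 CPM at E18.5, against 83.3 to 100.2 CPM at E13.5, log2 fold change 0.74).

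Globins switched from embryonic to adult forms. Hbb-y (chromosome 7, 103851749 to 103853216), the embryonic beta globin of yolk sac red cells, had 1.95, 2.95, 4.61 and 11.2 CPM at E18.5, against 1195, 3573, 1329, 1394 and 1313 CPM at E13.5 (log2 fold change -8.44, SE 0.757, edgeR adjusted p = 1.29e-05). Hba-x, the embryonic alpha globin, had 1.01, 0.658, 2.01 and 4.23 CPM at E18.5, against 94.4, 427, 92.3, 110.2 and 116 CPM at E13.5 (log2 fold change -6.47, SE 0.859, edgeR adjusted p = 0.000186). Hbb-bh1, another embryonic beta globin, had 0, 0.219, 0 and 0.493 CPM at E18.5, against 9.11, 45.9, 13.6, 15.9 and 11.5 CPM at E13.5 (log2 fold change -6.80, SE 0.908, edgeR adjusted p = 0.0001). E13.5 lung 2 held by far the most of all 3, and E18.5 lung 4 the most at its stage; without E18.5 lung 4 the log2 fold changes of Hbb-y, Hba-x and Hbb-bh1 were -9.11, -7.11 and -7.85, and without E13.5 lung 2 they were -8.05, -5.80 and -6.21. The adult genes rose. Hbb-bs had 3755, 2786, 3219.9 and 3273 CPM at E18.5, against 326, 97.9, 158, 204 and 267 CPM at E13.5 (log2 fold change 3.95, SE 0.325, edgeR adjusted p = 1.81e-06). Hba-a1 had 1882, 1498, 1800.3 and 1858 CPM at E18.5, against 385, 479.5, 237, 164 and 298 CPM at E13.5 (log2 fold change 2.49, SE 0.276, edgeR adjusted p = 1.52e-05). Their near-identical copies Hbb-bt (341 to 458 CPM at E18.5, against 28.3 to 109.5 CPM at E13.5, log2 fold change 2.72) and Hba-a2 (334 to 414 CPM at E18.5, against 44.8 to 96 CPM at E13.5, log2 fold change 2.33) make the split between copies uncertain. E13.5 lung 2, highest for embryonic globins, was the lowest for Hbb-bs but the highest for Hba-a1. Without E13.5 lungs 1 and 2 the log2 fold change of Hbb-bt was 3.33. Of the 11 other red cell genes, 5 rose, 1 fell and 5 did not pass, where 40.4% of all genes rose and 39.6% fell. Alas2, the initial enzyme of red cell haem synthesis, rose (148 to 194 CPM at E18.5, against 16.2 to 35.8 CPM at E13.5, log2 fold change 2.73). Slc4a1, the anion exchanger of the red cell, did not pass (16.2 to 29 CPM at E18.5, against 6.97 to 36.6 CPM at E13.5, log2 fold change 0.61), but did so when E13.5 lung 2 was left out (log2 fold change 1.31, edgeR adjusted p = 9.7e-05). Tfrc, the transferrin receptor that dividing cells also use, fell (48.2 to 57 CPM at E18.5, against 148 to 169.8 CPM at E13.5, log2 fold change -1.55).

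**Figure D4:**
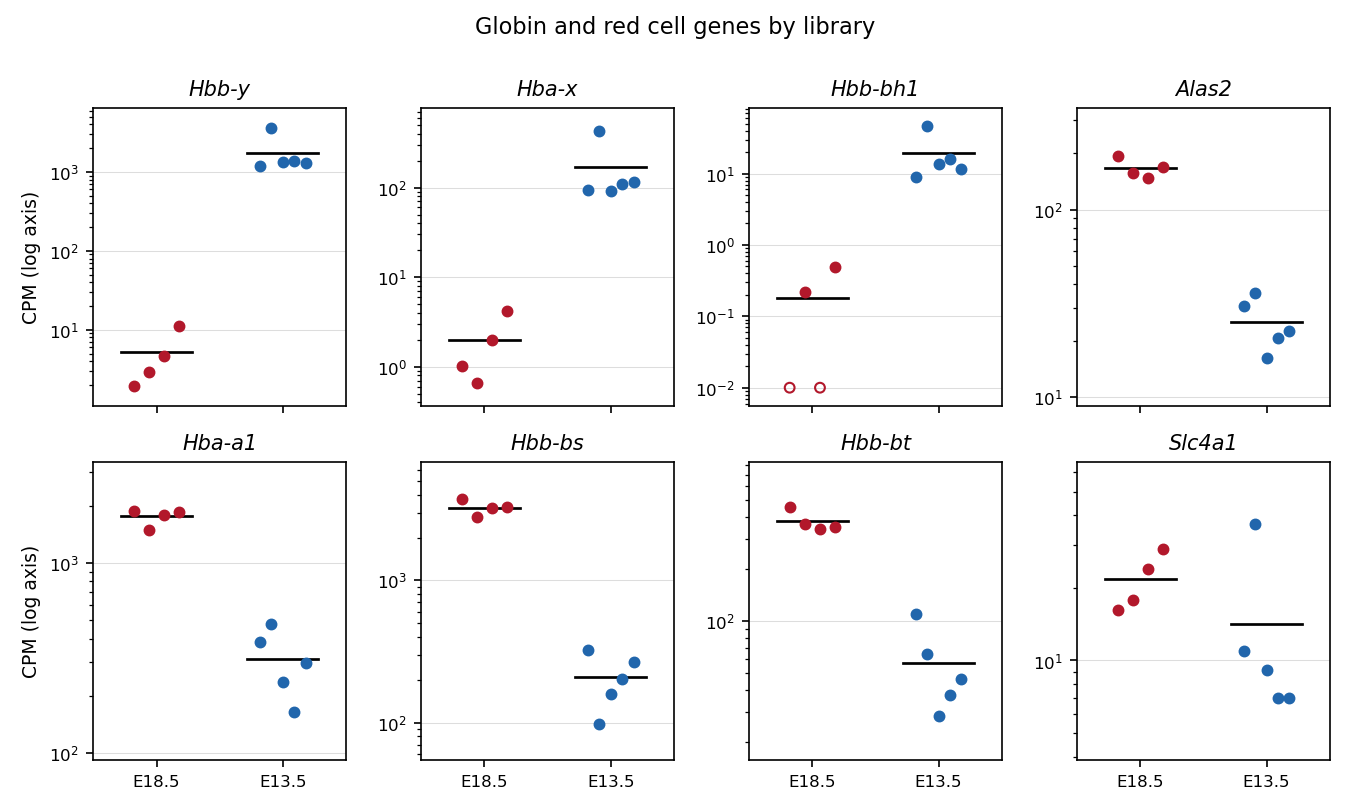
Levels of globin and red cell genes in each control lung in CPM, on a logarithmic axis, with E18.5 at the left and E13.5 at the right; bars are means and open symbols are libraries with 0 reads, drawn at 0.01 CPM. Hbb-y, Hba-x and Hbb-bh1 are lower in every E18.5 lung, with E13.5 lung 2 the highest in each, and Hba-a1, Hbb-bs, Hbb-bt and Alas2 are higher in every E18.5 lung.

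FGF ligands and a target of theirs moved in different directions. Fgf10, the mesenchymal signal that draws out new buds, rose, with 67.9, 79.4, 86.8 and 78.4 CPM at E18.5, against 45.9, 37.3, 48.5, 44.6 and 50.5 CPM at E13.5 (log2 fold change 0.79, SE 0.0916, edgeR adjusted p = 2.7e-06). Etv4, an ETS factor induced by FGF in distal tips, had 7.63, 10.4, 5.99 and 6.98 CPM at E18.5, against 24.6, 32.7, 26.9, 26.9 and 30.2 CPM at E13.5 (log2 fold change -1.86, SE 0.147, edgeR adjusted p = 6.23e-08). The ligand was higher and the ETS factor lower in every E18.5 lung. Fgf9, of mesothelium and early epithelium, fell (3.52 to 5.11 CPM at E18.5, against 8.52 to 12.9 CPM at E13.5, log2 fold change -1.35). Fgf7, the keratinocyte growth factor, had 23.5, 26.7, 22.9 and 24.7 CPM at E18.5, against 2.7, 1.86, 1.76, 2.48 and 2.72 CPM at E13.5 (log2 fold change 3.40, SE 0.133, edgeR adjusted p = 4.34e-11). Fgf7 rose past 2-fold and Fgf10 did not. Fgf18, a mesenchymal ligand, rose but not past 2-fold (8.59 to 10.8 CPM at E18.5, against 3.74 to 4.85 CPM at E13.5, log2 fold change 1.12). Fgfr2, the receptor that FGF7 and FGF10 use, did likewise (313 to 362 CPM at E18.5, against 203 to 244 CPM at E13.5, log2 fold change 0.67). Fgfr4, another receptor, rose past 2-fold (197 to 288 CPM at E18.5, against 27.6 to 46.1 CPM at E13.5, log2 fold change 2.86). The feedback inhibitor Spry2, which FGF signals induce, rose where Etv4 fell (51.4 to 59.3 CPM at E18.5, against 30.4 to 37.3 CPM at E13.5, log2 fold change 0.67). Of 18 FGF pathway genes, 11 rose and 6 fell, 6 and 2 past 2-fold, with a median of 0.73.

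Of the hedgehog genes, Gli1 and Ptch1 fell, Hhip rose and the ligand did not pass the test. Shh, the epithelial ligand, overlapped between the stages, with 26.6, 34, 36.1 and 40.1 CPM at E18.5, against 36.4, 33.1, 33.5, 37.5 and 36.2 CPM at E13.5 (log2 fold change -0.05, edgeR adjusted p = 0.673), and 28.3% of its exon bases overlap another gene. Gli1, the transcriptional target most often used as a readout, had 25.8, 30.0, 22.7 and 31 CPM at E18.5, against 187, 217, 193, 192 and 206 CPM at E13.5 (log2 fold change -2.86, SE 0.0937, edgeR adjusted p = 9.05e-12). Ptch1, receptor and target, had 190.0, 149.6, 197 and 175 CPM at E18.5, against 342, 341, 361, 328 and 316 CPM at E13.5 (log2 fold change -0.92, SE 0.0812, edgeR adjusted p = 1.48e-07). Gli1 and Ptch1 were lower in every E18.5 lung, Ptch1 not past 2-fold. Hhip, which binds and holds the ligand, was the only gene of the 13 to rise, with 421, 349, 362 and 294 CPM at E18.5, against 83.6, 80.8, 91.6, 95.2 and 85.1 CPM at E13.5 (log2 fold change 2.03, SE 0.0924, edgeR adjusted p = 1.82e-10), while 10 fell, 6 past 2-fold, and the median was -0.92.

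In the WNT pathway 8 of 25 genes rose and 14 fell, where 40.4% of all genes rose and 39.6% fell, with a median of -0.50. Rspo2, an R-spondin of the early mesenchyme that strengthens WNT signals, had 2.06, 2.22, 2.11 and 1.73 CPM at E18.5, against 46.6, 73.8, 54.9, 51.5 and 51.8 CPM at E13.5 (log2 fold change -4.77, SE 0.156, edgeR adjusted p = 1.16e-11). Sfrp1, a secreted WNT inhibitor, had 15.8, 14.8, 15.3 and 16.9 CPM at E18.5, against 115, 154, 127, 113 and 118 CPM at E13.5 (log2 fold change -2.999, SE 0.0994, edgeR adjusted p = 1e-11). Wnt7b, the ligand of the epithelium, had 36.5, 32.1, 36 and 42.9 CPM at E18.5, against 144, 157, 143, 131 and 139 CPM at E13.5 (log2 fold change -1.96, SE 0.0849, edgeR adjusted p = 1.2e-10). All 3 were lower in every E18.5 lung, an enhancer, an inhibitor and a ligand alike. Lef1, effector and target, fell (12.7 to 14 CPM at E18.5, against 35.9 to 48 CPM at E13.5, log2 fold change -1.68). Nkd1, a target and feedback inhibitor, rose (258 to 361 CPM at E18.5, against 63.3 to 72.7 CPM at E13.5, log2 fold change 2.19). Axin2, the target most often used as a readout, rose but not past 2-fold (70.8 to 93.2 CPM at E18.5, against 59.8 to 66 CPM at E13.5, log2 fold change 0.36). The targets thus had no common direction. Wif1, a secreted inhibitor, rose (10.3 to 20.001 CPM at E18.5, against 4.08 to 6.54 CPM at E13.5, log2 fold change 1.62). Wnt5a, a ligand of noncanonical signals, rose (41.6 to 64.6 CPM at E18.5, against 26.1 to 30.3 CPM at E13.5, log2 fold change 0.89). Wnt3a had 18.8, 22.6, 21 and 25.1 CPM at E18.5, against 1 read in the 5 E13.5 lungs together.

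BMP and TGF-beta genes showed no common direction, 10 up and 12 down of 24, where 40.4% of all genes rose and 39.6% fell. Their median was -0.15. Bmp4, of the distal tips, was marginal (68.4 to 87.4 CPM at E18.5, against 61.7 to 78.7 CPM at E13.5, log2 fold change 0.20, edgeR adjusted p = 0.0457), and the call was lost in 13 of 20 alternatives. The ligands Tgfb2 (75.5 to 89.2 CPM at E18.5, against 174 to 189 CPM at E13.5, log2 fold change -1.10) and Tgfb3 (37.6 to 41.7 CPM at E18.5, against 78.9 to 90.4 CPM at E13.5, log2 fold change -1.07) fell. The receptor Tgfbr2 rose (361 to 410.1 CPM at E18.5, against 92.4 to 113 CPM at E13.5, log2 fold change 1.87). Tgfbi, a matrix protein and TGF-beta target, fell (189 to 277 CPM at E18.5, against 396 to 424 CPM at E13.5, log2 fold change -0.92). Id3, a BMP target, fell slightly (123 to 141 CPM at E18.5, against 151 to 184 CPM at E13.5, log2 fold change -0.30). Of 18 Hox genes, none rose and 16 fell, 11 past 2-fold, with a median of -1.74. Hoxa5, which lung mesenchyme needs, had 49.1, 63.5, 65.9 and 56.7 CPM at E18.5, against 119, 153, 131, 143 and 133 CPM at E13.5 (log2 fold change -1.21, SE 0.0947, edgeR adjusted p = 4.9e-08). Hoxb5 fell further (13.9 to 21.2 CPM at E18.5, against 72.6 to 114 CPM at E13.5, log2 fold change -2.39).

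**Figure D5:**
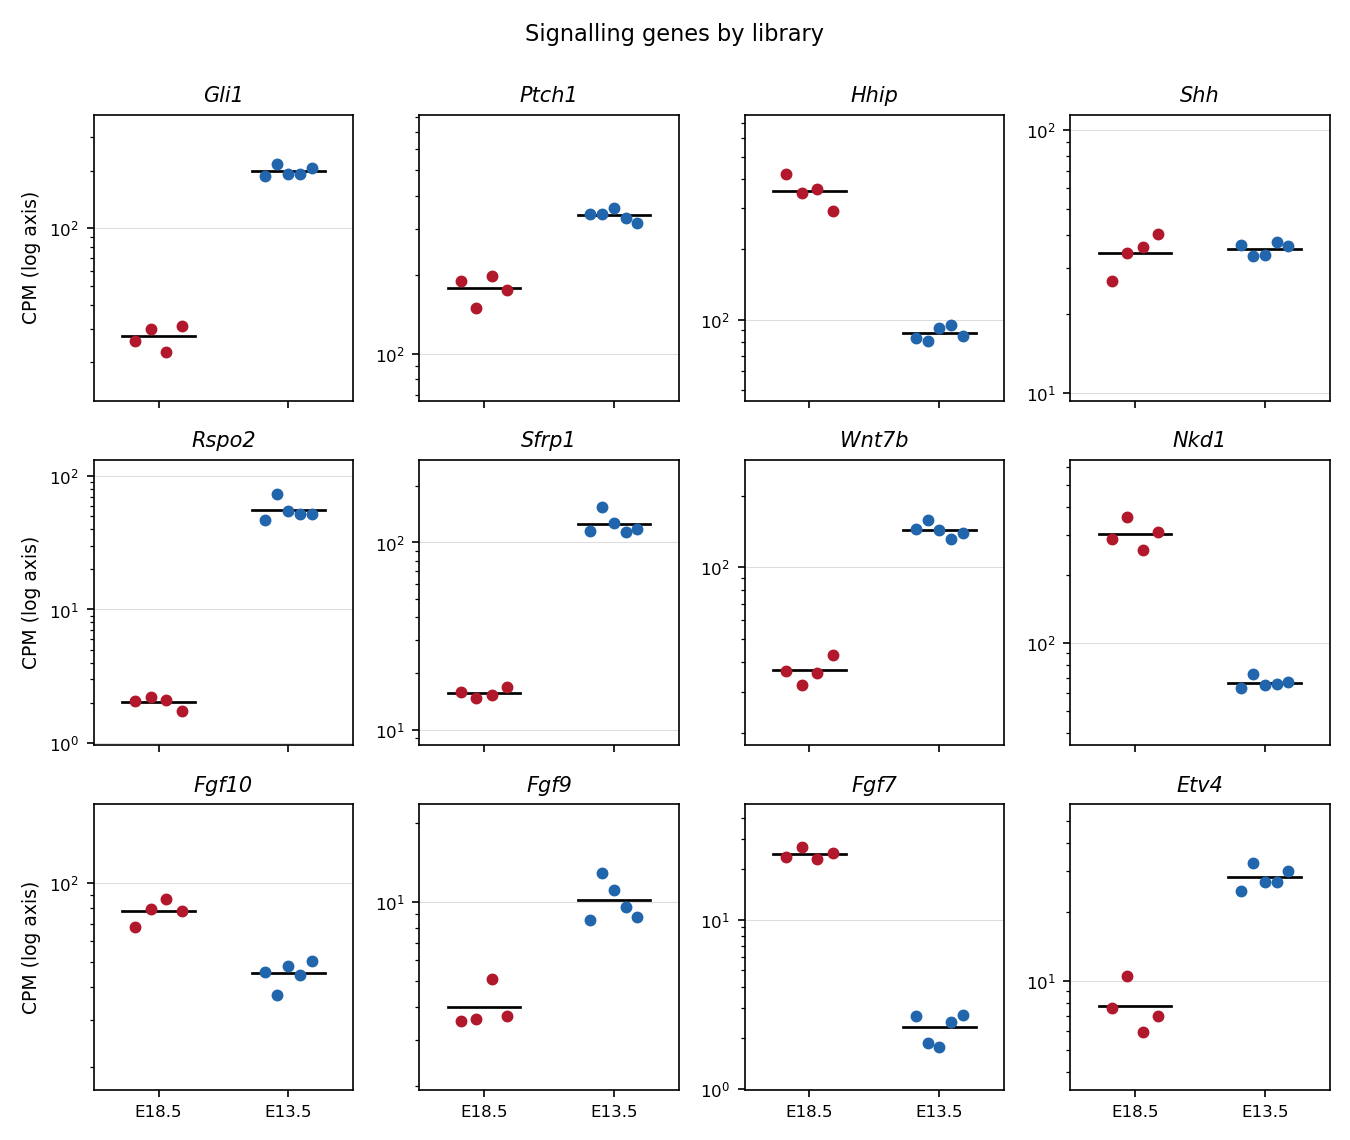
Levels of 12 hedgehog, WNT and FGF pathway genes in each control lung in CPM, on a logarithmic axis, with E18.5 at the left and E13.5 at the right; bars are means. Shh overlaps between the stages, Gli1, Ptch1, Rspo2, Sfrp1, Wnt7b, Fgf9 and Etv4 are lower in every E18.5 lung, and Hhip, Nkd1, Fgf10 and Fgf7 are higher.

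Glucocorticoid response genes rose in 14 of 17 cases, 11 past 2-fold, with a median of 1.81. Nr3c1, the glucocorticoid receptor, had 251, 214, 237 and 216 CPM at E18.5, against 65, 58, 67.1, 71.1 and 67.8 CPM at E13.5 (log2 fold change 1.804, SE 0.0709, edgeR adjusted p = 4.68e-11). The enzymes that set local hormone levels moved in opposite directions. Hsd11b1, which makes active hormone, had 187, 185, 171 and 176 CPM at E18.5, against 0.312, 0.215, 0.084, 0.556 and 0.35 CPM at E13.5 (log2 fold change 9.17, SE 0.162, edgeR adjusted p = 7.36e-14). Hsd11b2, which inactivates it, had 0.627, 1.85, 1.51 and 1.4 CPM at E18.5, against 12.9, 24.1, 13.7, 13.7 and 15.7 CPM at E13.5 (log2 fold change -3.56, SE 0.281, edgeR adjusted p = 1.14e-07). Neither overlapped between the stages, and E13.5 lung 2 was the highest for Hsd11b2. Among genes the receptor induces, Zbtb16 had 125.9, 164, 93.5 and 81.8 CPM at E18.5, against 2.39, 2.01, 2.9, 3.11 and 1.87 CPM at E13.5 (log2 fold change 5.57, SE 0.231, edgeR adjusted p = 4.71e-10). Klf9 had 84.3, 80.5, 55.4 and 55.2 CPM at E18.5, against 4.99, 5.99, 5.21, 5.15 and 5.45 CPM at E13.5 (log2 fold change 3.68, SE 0.143, edgeR adjusted p = 8.5e-11). Tsc22d3, which codes for GILZ, had 257, 232, 152 and 159.9 CPM at E18.5, against 47.5, 54, 46.1, 49.6 and 53.5 CPM at E13.5 (log2 fold change 1.998, SE 0.144, edgeR adjusted p = 4.81e-08). In these 3 genes E18.5 lungs 1 and 2 lay above lungs 3 and 4, and all lay above every E13.5 lung. Fkbp5, a chaperone of the receptor, showed the same order at E18.5 and overlapped with E13.5, with 191, 207, 96.8 and 112 CPM at E18.5, against 93.6, 87.7, 97.1, 95.7 and 97.3 CPM at E13.5 (log2 fold change 0.69, edgeR adjusted p = 0.01), a call lost in 4 of 20 alternatives. Angptl4, a lipase inhibitor, fell (9.74 to 19.6 CPM at E18.5, against 21.2 to 26.6 CPM at E13.5, log2 fold change -0.84).

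Antioxidant genes were mixed, 9 up and 4 down of 15, with a median of 0.41. Cat, catalase, had 256, 267, 281 and 289 CPM at E18.5, against 114, 125, 119, 117 and 115 CPM at E13.5 (log2 fold change 1.21, SE 0.0568, edgeR adjusted p = 2.35e-10). Gpx3, the secreted glutathione peroxidase, rose (403 to 569.5 CPM at E18.5, against 73.8 to 91.2 CPM at E13.5, log2 fold change 2.59). Sod3, the extracellular superoxide dismutase, rose too (4.42 to 5.8 CPM at E18.5, against 0.148 to 0.466 CPM at E13.5, log2 fold change 4.13). Prdx6, a peroxiredoxin that also acts on surfactant lipid, rose by less (326 to 399.9 CPM at E18.5, against 266 to 279.6 CPM at E13.5, log2 fold change 0.41). Txnrd1, thioredoxin reductase and a target of NRF2, fell (65.5 to 81.8 CPM at E18.5, against 235 to 264 CPM at E13.5, log2 fold change -1.81). Nqo1, another such target, fell less (3.37 to 5.86 CPM at E18.5, against 6.06 to 8.02 CPM at E13.5, log2 fold change -0.70).

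Genes of the pleural mesothelium moved in different directions. Msln, mesothelin, had 876, 824, 645 and 933 CPM at E18.5, against 0.554, 0.179, 0.923, 1.0 and 0.934 CPM at E13.5 (log2 fold change 10.17, SE 0.254, edgeR adjusted p = 4.73e-12). Wt1, a factor of early mesothelium, had 5.61, 5.86, 6.02 and 5.59 CPM at E18.5, against 18.6, 40.2, 26.4, 26.3 and 27.1 CPM at E13.5 (log2 fold change -2.26, SE 0.187, edgeR adjusted p = 1.71e-07). Aldh1a2, which makes retinoic acid, had 31.9, 29.9, 32.9 and 31.8 CPM at E18.5, against 75, 139, 99.9, 98.2 and 103 CPM at E13.5 (log2 fold change -1.70, SE 0.141, edgeR adjusted p = 1.88e-07). E13.5 lung 2 was the highest for Wt1 and Aldh1a2. Upk3b, which mesothelium keeps, overlapped (107 to 124 CPM at E18.5, against 78.4 to 123 CPM at E13.5, log2 fold change 0.25, edgeR adjusted p = 0.0475), and its call was lost in 13 of 20 alternatives. Genes of the intrinsic neurons and glia of the lung were low and fell in 7 of 10 cases. The glial Sox10 fell (0.423 to 0.822 CPM at E18.5, against 1.77 to 3.23 CPM at E13.5, log2 fold change -2.15). The neuronal tubulin Tubb3 fell (0.174 to 1.25 CPM at E18.5, against 2.01 to 2.88 CPM at E13.5, log2 fold change -1.69), and Stmn2, stathmin 2 of growing axons, rose against the list (14.4 to 21.3 CPM at E18.5, against 5.95 to 6.67 CPM at E13.5, log2 fold change 1.495).

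Genes of heart muscle rose in 8 of 8 cases, all past 2-fold, and their summed level was 469 to 816 CPM at E18.5 and 46.5 to 69.5 CPM at E13.5. Myh6, the atrial myosin heavy chain, had 301, 159, 218 and 179.8 CPM at E18.5, against 0.97, 0.466, 0.714, 1.33 and 2.57 CPM at E13.5 (log2 fold change 7.47, SE 0.361, edgeR adjusted p = 2.52e-08). Tnnt2, cardiac troponin T, had 81.5, 40.4, 50.9 and 39.2 CPM at E18.5, against 1.97, 1.97, 1.43, 1.89 and 2.22 CPM at E13.5 (log2 fold change 4.80, SE 0.235, edgeR adjusted p = 1.36e-09). E18.5 lung 1 held the most of both. Nppa, the atrial hormone, had 0 reads in all 4 E18.5 lungs and 2 or fewer in each E13.5 lung. In mice, cardiac muscle sleeves the pulmonary veins within the lung, and the share of such tissue in the dissected lobes was not tested. Cartilage genes fell in 7 of 10 cases, with summed levels of 174 to 231 CPM at E18.5 and 339 to 374 CPM at E13.5. Col2a1, the cartilage collagen, had 0.766, 3.95, 1.2 and 1.48 CPM at E18.5, against 116, 115, 92.9, 98.1 and 115 CPM at E13.5 (log2 fold change -5.82, SE 0.355, edgeR adjusted p = 1.25e-07), with E18.5 lung 2 the highest at its stage. Without that lung the log2 fold change was -6.56. Cnmd, chondromodulin, fell (0.423 to 0.627 CPM at E18.5, against 1.51 to 3.67 CPM at E13.5, log2 fold change -2.33). Acan, aggrecan, was under 1 CPM in every lung and did not pass (log2 fold change 1.06, edgeR adjusted p = 0.112), but rose when E18.5 lung 4 was left out (log2 fold change 1.42, edgeR adjusted p = 0.00945). Matn4, a matrilin, rose (107 to 167 CPM at E18.5, against 28.6 to 37.3 CPM at E13.5, log2 fold change 2.08). Comp, a cartilage matrix protein, rose below 1 CPM (0.407 to 0.74 CPM at E18.5, against 0.185 to 0.428 CPM at E13.5, log2 fold change 0.84), a call lost in 11 of the 19 alternatives in which it was tested.

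Genes of other organs summed to 2.92 to 5.92 CPM at E18.5 and 3.96 to 7.64 CPM at E13.5 over 14 genes, with 5 high enough to test. Afp, of fetal liver, fell (0.094 to 0.662 CPM at E18.5, against 1.26 to 2.77 CPM at E13.5, log2 fold change -1.99). Alb, albumin, rose (0.534 to 2.23 CPM at E18.5, against 0.0371 to 0.762 CPM at E13.5, log2 fold change 2.36). Tg, thyroglobulin, rose (1.52 to 2.23 CPM at E18.5, against 0.195 to 0.714 CPM at E13.5, log2 fold change 2.13). None of these 3 exceeded 3 CPM in any lung. Without E13.5 lung 1 the log2 fold change of Alb was 3.32. Krt13, of oesophagus, stayed under 0.6 CPM in every lung, and Myod1, of skeletal muscle, was at 0 in every E18.5 lung and under 0.2 CPM in every E13.5 lung. Of 5 sex-linked genes, none passed. Xist had 0.314, 839.7, 0.282 and 839.6 CPM at E18.5, against 0.416, 0.359, 0.462, 1219 and 0.389 CPM at E13.5, and the Y-linked Ddx3y and Eif2s3y were near 0 in the same 3 lungs (log2 fold changes -0.24 and -0.43), so both stages held lungs of both sexes.

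Several of the largest changes fell outside the lists. Among the 10 largest rises, Sec14l3, a lipid transfer protein, had 577, 544, 557 and 550.1 CPM at E18.5, against 3 reads in E13.5 lung 1 and 0 in the others. C6, a complement component, had 79.9, 59.3, 59.7 and 71 CPM at E18.5 and 0 reads in all 5 E13.5 lungs, so it was at least 2998-fold higher, and Mlc1, a membrane protein known from astrocytes, had 34.3, 29.8, 35.5 and 36.2 CPM and 0 reads, at least 1509-fold higher. Cfap65, a protein of cilia and flagella, had 76.9, 50.8, 57.5 and 67.1 CPM at E18.5, against 1 read at E13.5. Retnla, the resistin-like protein of allergic lung inflammation, had 40.3, 31.1, 32.5 and 68 CPM at E18.5, also against 1 read. The other large rises were surfactant, lysozyme, secretoglobin, phosphate transporter and S100g genes described above.

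Among the 10 largest falls, Nr1h5, the farnesoid X receptor beta, had 0.174, 0.909, 0.845 and 0.123 CPM at E18.5, against 61.2, 50.7, 62.4, 66.7 and 71.5 CPM at E13.5 (log2 fold change -6.86, SE 0.307, edgeR adjusted p = 7.74e-10). Kif12, a kinesin, had 0, 0.0627, 0.352 and 0 CPM at E18.5, against 31.9, 23.1, 29.2, 27.3 and 27.4 CPM at E13.5 (log2 fold change -7.98, SE 0.368, edgeR adjusted p = 7.1e-10). Its lowest libraries rest on a few reads, and without E18.5 lung 3 the log2 fold change was -9.94. B4galnt4, a glycosyltransferase, fell as well (0.766 to 1.02 CPM at E18.5, against 55.4 to 71.5 CPM at E13.5, log2 fold change -6.14). The septin gene Sept3 did so too (0.439 to 1.25 CPM at E18.5, against 38 to 54.9 CPM at E13.5, log2 fold change -6.03). Foxl1, a forkhead factor of the mesenchyme next to gut epithelium, stood at 0.458 to 1.16 CPM at E18.5, against 23.3 to 27.6 CPM at E13.5 (log2 fold change -4.92). These 3 were under 1.3 CPM in every E18.5 lung. Hsd3b6, a steroid dehydrogenase, had 0.314, 0.752, 0.528 and 0.123 CPM at E18.5, against 10.8, 55, 14.6, 11.5 and 13 CPM at E13.5 (log2 fold change -5.55, SE 0.806, edgeR adjusted p = 0.00018). E13.5 lung 2 was the highest, and without it the log2 fold change was -4.83. Bcat1, which degrades branched-chain amino acids in embryonic and neural tissue, had 2.72, 1.72, 0.211 and 0.493 CPM at E18.5, against 40.7, 54.2, 47.9, 56.8 and 57.3 CPM at E13.5 (log2 fold change -5.28, SE 0.444, edgeR adjusted p = 1.92e-06). Here E18.5 lungs 1 and 2 were above lungs 3 and 4, and without lung 1 the log2 fold change was -5.90. The 10 largest losses of CPM were of abundant genes. Among them, the mitochondrial message mt-Cytb stood at 2187 to 2927 CPM at E18.5, against 5674 to 7129 CPM at E13.5 (log2 fold change -1.35). The log2 fold changes of mt-Nd1, mt-Nd5 and mt-Co1 were -2.05, -1.82 and -0.72. Ptma, prothymosin alpha, fell most of these, to 229.8, 299, 229 and 252 CPM at E18.5, against 1968, 2040.0, 2061, 2337 and 2285 CPM at E13.5 (log2 fold change -3.08, SE 0.098, edgeR adjusted p = 7.12e-12). The log2 fold changes were -2.38 for the beta tubulin Tubb5, -1.52 for the RNA-binding protein Hnrnpa2b1, -1.18 for the chaperone Hsp90ab1 and -0.58 for the elongation factor Eef1a1.

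The lungs of mutant embryos, 6 at E18.5 and 5 at E13.5, had 2 floxed Myocd alleles with the same transgenes and shared no library with the controls, though each stage shared its sequencing run. In them 12800 of 17156 genes (74.6%) changed between the stages and 5290 (30.8%) did so past 2-fold. Of the 6120 control genes past 2-fold, 5821 were tested in mutants, and 4944 (84.9%) of these were past 2-fold in the same direction. They were 94.3% of the 5242 mutant genes past 2-fold that were tested in controls. The stage change itself differed between the genotypes in 5 of 18639 genes (0.0268%) by edgeR's interaction test at an adjusted p under 0.05. These 5 were Acta2, Ccdc150, Lgr6, Mns1 and Nupr1, of which the last 4 are named because they passed. Without adjustment, 1090 of the 18639 genes had a p under 0.05 in that test. Chance alone gives such a p in a share of about 0.05 of genes, so the 1090 are not counted as differences. The log2 fold change of Acta2 was -0.34 in mutants and -1.43 in controls, a difference of 1.11 (edgeR adjusted p = 0.00701). Its mean level, scaled by library size alone, was 114 CPM in mutants and 120 CPM in controls at E18.5. At E13.5 it was 144 CPM in mutants and 334 CPM in controls, so the genotypes lay further apart at the earlier stage. Contractile genes as a list had a median of -0.09 in mutants and -0.52 in controls, whereas type 2 genes had 7.41 in mutants and 7.36 in controls and mitosis genes had -1.97 in mutants and -2.17 in controls.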

How the data were processed

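Messenger RNA of 9 control lungs, 4 at E18.5 and 5 at E13.5, was compared. Tissue was kept in TRIzol and libraries were made, per the labels' protocols, with a TruSeq V2 kit, which does not mark strand, and read as single reads on a HiSeq4000. STAR, GRCm38 and DESeq2 are named in the submitters' processing notes, and no version of STAR was found in the labels. Raw read counts per gene were deposited, made with featureCounts 1.6.2 and GENCODE vM17, per the file headers. At its default options, which the headers show, reads with several mapping places or overlapping 2 genes are not counted, so near-identical copies and overlapping genes are uncertain. Each table lists 53715 genes; 53620 IDs had a symbol in GENCODE vM21 and 52056 the same start and end there.

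The tables of both stages were joined by gene ID. Counts were tested with edgeR 4.0.16 in R 4.3.3 (TMM, filterByExpr, robust quasi-likelihood F test, two-sided, Benjamini-Hochberg adjustment, threshold 0.05), and with its test against a 2-fold change. The standard error (SE) comes from the fit. Library measures had exact permutation tests in scipy 1.17.1 (Python 3.11.15). Chi-square per degree of freedom between 2 libraries of a stage was 5.93 or more, so none was a copy of another. Depth was 24.8 to 32.8 M counts at E18.5 and 23.5 to 28.5 M at E13.5. Counting error weighs more on genes near or below 1 CPM than on abundant genes. A gene at 0 reads in a stage was set to a floor of 3 counts over that stage, and folds against it are lower bounds for counting error only.

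The libraries and the 41 gene lists were chosen with earlier results of these data known. Named genes were the anchors of each list, up to 2 members per list that passed against the direction of most, the 10 largest rises and falls past 2-fold at 20 CPM or more in the higher stage without overlap, and the 10 largest gains and losses of CPM; 244 genes resulted, of which a few are not reported here. The calculation was tested on simulated counts, with changes planted in far fewer genes than changed here. That test therefore did not check the scaling under so broad a change. Alternatives were other normalizations, other filters on low counts, DESeq2 1.42.0, all 20 lung libraries in the fit, a replicate block, correction for GC content and length, and leaving out each library. The replicate block kept only numbers present at both stages, so E13.5 control 5 was left out of it. Sex as a covariate, and leaving out E13.5 controls 1 and 2 together, were added after the data were seen. Trachea libraries are not used here. Promoters and microRNAs are RefSeq's, on GRCm38.p6, and were matched by symbol.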

Additional observations from a re-analysis of the deposited data

Results flagged for a closer look

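Single lungs stood apart from the others of their stage in 40 of 506 groups of values tested by Dixon's test at the 95% level, and chance flags about 1 in 20 groups. Many came from E13.5 control 2, given here against the range of the other E13.5 controls. It was highest for the embryonic globins Hbb-y (3573 against 1195 to 1394 CPM), Hba-x (427 against 92.3 to 116 CPM) and Hbb-bh1 (45.9 against 9.11 to 15.9 CPM), for the red cell gene Slc4a1 (36.6 against 6.97 to 10.98 CPM) and for the share of counts in globin genes (0.479% against 0.193 to 0.224%). It was also highest for Hsd3b6 (55.0 against 10.8 to 14.6 CPM), Hsd11b2 (24.1 CPM), Eef1a1 (7739 CPM), Tgfbi (424 CPM) and Lin28a (0.681 CPM). It was lowest for Mylk (314 CPM), Aqp1 (32.1 CPM) and Cftr (12.7 CPM). Across all genes tested it was the highest or lowest of its stage in 51.2%, against 31.6 to 42.3% in the other E13.5 controls. On the first principal component it lay at -107.9, against -93.7 to -100.5 in the other E13.5 controls and 117 to 133 at E18.5. The cause of these values was not tested, nor was the part of blood content in them.

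E13.5 control 1, the lung with another genotype, was highest for Afp (2.77 CPM) and Gnas (39.1 CPM) and lowest for Angptl4 (21.2 CPM) and Pdgfra (174 CPM). It also held the only reads at E13.5 for Cfap65 and Retnla (0.0346 CPM each) and for Sec14l3 (0.104 CPM). E13.5 control 3 was lowest for Acta2 (278 CPM) and H2-K1 (14.65 CPM). E13.5 control 4 was highest for Xist (1219 CPM) and lowest for Ddx3y (0.111 CPM), Eif2s3y (0 CPM) and the sum of 4 Y-linked genes (0.111 CPM). It also held the only E13.5 read of S100g and of Wnt3a (0.0371 CPM each).

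At E18.5, control 1 was highest for Scgb3a2 (648 CPM) and Sept3 (1.25 CPM) and lowest for Mfap4 (2267 CPM). E18.5 control 2 was highest for Aqp5 (211 CPM), Tgfbi (277 CPM) and Tubb5 (690.1 CPM). E18.5 control 3 was highest for Fgf9 (5.11 CPM) and lowest for Scgb1a1 (626 CPM). E18.5 control 4 was highest for Fasn (1376 CPM), Vegfa (1144 CPM) and Sox10 (0.822 CPM), and had the fewest genes with at least 1 read (22666).

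The stage change differed between mutant and control lungs in 5 genes by edgeR's interaction test, given as mutant minus control on the log2 scale. Acta2 differed by 1.11 (adjusted p = 0.00701), with a log2 fold change of -0.34 in mutants and -1.43 in controls. Its means, by library size alone, were 114 CPM in mutants and 120 CPM in controls at E18.5, against 144 and 334 CPM at E13.5. Lgr6, an R-spondin receptor, differed by 1.26 (adjusted p = 0.0459), with 0.99 in mutants and -0.25 in controls. Nupr1, a stress-induced nuclear protein, differed by -1.47 (adjusted p = 0.00701), with 4.26 in mutants and 5.75 in controls. Mns1, a protein of sperm tails and cilia, differed by -1.27 (adjusted p = 0.000245), with -2.35 in mutants and -1.06 in controls. Ccdc150 differed by -1.601 (adjusted p = 0.00701), with 0.07 in mutants and 1.68 in controls.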

How the results depend on the processing

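The number of genes changed past an adjusted p of 0.05 was 12762 to 16371 and the number past 2-fold 5232 to 7327 over the alternatives other than leaving out a library, all within 1.5 times the reported counts. Leaving out each library in turn gave 13593 to 14123 genes changed (6810 to 7117 higher, 6727 to 7006 lower at E18.5), 5859 to 6288 past 2-fold (3380 to 3606 higher, 2433 to 2682 lower), 25 to 26 lists with a median above 0 and 14 to 15 below, and 6 to 7 library measures under an exact permutation p of 0.05. In mutant lungs it gave 5032 to 5296 genes past 2-fold, and DESeq2 gave 4518. With the replicate number as a block, which leaves out E13.5 control 5, 6803 genes were higher and 6690 lower, 3414 and 2426 of them past 2-fold. Deviations of same-numbered lungs correlated across genes at 0.0758 to 0.112. Differently numbered lungs were not compared in this way, so whether the numbers pair lungs was not tested. The median log2 fold change of all genes was -0.103 with no filter on low counts and -0.0371 to 0.0345 in the other alternatives.

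Of 238 named genes in the fit, 213 kept their direction and call in every alternative that tested them, which was 20 for 229 of the 238 and 18 or 19 for the other 9. The log2 fold change turned direction, each time without passing the test, in 7 genes. Leaving out each library in turn gave -0.144 to 0.0123 for Aplnr, -0.113 to 0.00385 for Col3a1, -0.129 to 0.061 for Shh, -0.0419 to 0.0835 for Notch3 and -0.871 to 0.176 for Ddx3y. With GC content and length corrected, it was -0.0767 for Bmp4, 0.0321 for Eif2s3y and 0.249 for Ddx3y. Without E13.5 controls 1 and 2 it was 0.0648 for Ddx3y and -0.0163 for Notch3. For Notch3 it was -0.0187 by library size alone, -0.0022 with no filter, -0.0162 with all 20 lungs and -0.0141 with sex as a covariate. With GC content and length corrected, Foxf1 (-0.37), Col3a1 (-0.41), Mrc1 (0.27) and Ednrb (0.49) passed; the cause was not tested. Xist passed without E13.5 control 4 (log2 fold change 9.998), the only E13.5 lung with a high level. The medians of the lists of lung transcription factors, basal epithelium, neuroendocrine cells and sex-linked genes changed sign in at least 1 alternative, so they have no stable direction. Only 11 of the 41 lists had a median that moved by less than the spread in every alternative. The size of the other medians thus depends in part on the processing.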
